A study of Bos taurus with 8 samples.

Results

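Cloned cattle embryos with KDM4E overexpression were compared with cloned embryos without it at the eight-cell stage. Both groups were Holstein embryos made by somatic cell nuclear transfer (SCNT), in which the nucleus of a body cell is placed into an oocyte without its own chromosomes. The control group had 3 libraries (SCNT) and the group with KDM4E overexpression had 2 (KDM4E-SCNT). Each library was made from a pool of 8 whole embryos, and the series names plain SCNT as the control. Another group of 3 libraries from in vitro fertilised embryos (IVF) entered the statistical model, and its levels are given beside some genes for reference. How the overexpression was brought about is not given in the sources used here, and neither is which donor cells gave the nuclei, at what hour embryos were taken, and whether pools came from separate rounds of nuclear transfer, so the p-values measure only the spread between these pools, which may be technical. A feature belonged to the comparison when it had at least 1 FPKM (fragments mapped to a feature, scaled to its transcript's length in kilobases and to the library's mapped fragments) in at least 2 of the 5 libraries. Of the 21258 features in the files 13219 did, of which 9575 carry a gene symbol and 2812 are loci that the submitters assembled from the reads without an annotated gene. These 13219 are called members below.

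KDM4E belongs to the KDM4 family of Jumonji histone demethylases, enzymes that remove methyl groups from lysines of histone H3. Methylation of H3K9 marks compact, silent chromatin, and nuclei from body cells bring much of it into the oocyte. In cattle the embryonic genome becomes strongly active around the eight-cell stage. Until then the embryo lives largely on RNA stored by the oocyte, much of which is degraded as the embryo's own transcription takes over. Clones are known for incomplete activation of the embryonic genome. The RNA measured here is therefore a mixture of stored oocyte RNA and newly made RNA, and the values do not separate the one from the other. FPKM is a share of each library, so fewer cells of a type and less RNA per cell cannot be told apart, and neither can a gain of one RNA and a loss of the rest.

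The libraries listed between 10975 and 11490 features at 1 FPKM or more in SCNT, and 12453 and 13050 in KDM4E-SCNT. Mitochondrially encoded genes took 7.54 to 10.6% of the summed FPKM in SCNT and 11.0 and 11.5% in KDM4E-SCNT. The values are FPKM without read counts, so the depth behind each value is unknown and no counting interval can be given. Across members, Spearman's rho was 0.91 to 0.93 between SCNT libraries, 0.895 between the KDM4E-SCNT libraries and 0.706 to 0.825 between the groups. All pairs involving KDM4E-SCNT replicate 2 and a SCNT library lay at or below 0.761. The summed FPKM of the fibroblast, cumulus, sperm and trophectoderm marker lists was also highest of the 5 libraries in KDM4E-SCNT replicate 2. For sperm markers LDHC alone gave 45.2 of the 65.5 FPKM there. The cumulus sum was raised in both KDM4E-SCNT libraries and in IVF embryos. These sums are described with the markers below. Results are therefore given with and without KDM4E-SCNT replicate 2 where that library decides them.

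The overexpressed gene was looked for before any other. No feature used here carries the symbol KDM4E. LOC524768, on chromosome 15 from 15664825 to 15668339 (UMD3.1), is described as a lysine demethylase resembling KDM4C and, unlike the other features, is listed by a RefSeq mRNA. LOC524768 was at 25.4, 29.9 and 33.9 FPKM in SCNT and 102 and 206 in KDM4E-SCNT. Both KDM4E-SCNT libraries lay above all 3 SCNT libraries. The difference in log2(FPKM + 1), the scale of every difference below, was 2.26 ± 0.34 (standard error), or 4.78-fold, with a Benjamini-Hochberg adjusted p = 0.00114 from limma. LOC524768 was at 102 ± 11.9 FPKM (SD, n = 3) in IVF embryos. The files also hold 3 assembled loci on the same chromosome, all listed from 15653220 to 15659984, with descriptions that name a lysine demethylase resembling KDM4D. The first was at 0.35, 1.06 and 0.22 FPKM in SCNT and 2.94 and 2.75 in KDM4E-SCNT, and the next at 0.96, 2.33 and 2.94 in SCNT and 15.4 and 5.87 in KDM4E-SCNT, both without overlap. The last was listed at 0 in SCNT replicates 2 and 3 and in KDM4E-SCNT replicate 1, at 0.90 FPKM in SCNT replicate 1 and at 10.1 in KDM4E-SCNT replicate 2. Whether reads of LOC524768 come from the overexpressed gene, the embryo's own copy or a related gene was not tested. KDM4C, a related demethylase, was at 7.09, 8.69 and 8.42 FPKM in SCNT and 18.7 and 27.6 in KDM4E-SCNT, a rise of 1.39 ± 0.33, adjusted p = 0.00785. KDM4A was at 6.12, 6.82 and 8.73 FPKM in SCNT and 10.1 and 8.15 in KDM4E-SCNT (0.31 ± 0.34, adjusted p = 0.508), and its feature carries the description of another gene, a receptor-type phosphatase. KDM4B, another member of the family, reached at most 0.44 FPKM in the 5 libraries and was no member. KDM4C did not pass the test without KDM4E-SCNT replicate 2 (adjusted p = 0.0886).

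Of the members, 3175 were called higher in KDM4E-SCNT and 1636 lower, at an adjusted p under 0.05. Those are 24.0% and 12.4% of the members, beside 21.6% higher and 11.0% lower among all 14839 features tested, and 32.6% of all features tested were called in either direction. A further 8408 members were not called. At an unadjusted p under 0.05 the counts were 4120 and 2348. Changes of at least 4-fold were found in 830 members called higher and 321 called lower, and changes of at least 8-fold in 63 and 35. The median difference was 1.67 among members called higher and -1.52 among those called lower. Groups did not overlap in 62.1% of members, 38.3% with both KDM4E-SCNT libraries above all SCNT libraries and 23.8% below, beside 59.5%, 38.1% and 21.4% of all features tested. Among called members 3154 of the 3175 rises and 1631 of the 1636 falls had no overlap. A lack of overlap therefore adds little to a call.

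**Figure D1:**
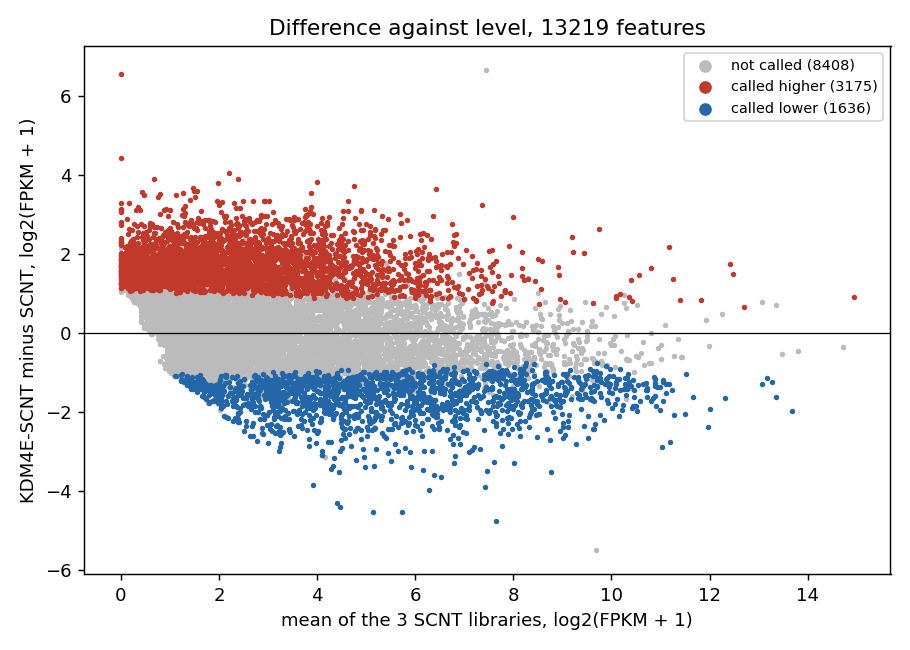
Each point is 1 of the 13219 members, with the mean of the 3 SCNT libraries on the horizontal axis as log2(FPKM + 1) and the difference KDM4E-SCNT minus SCNT on the vertical axis on the same scale. Red points were called higher (3175), blue points lower (1636) and grey points were not called (8408). The lower edge at the left is a limit of the scale, because a feature cannot fall by more than its own level.

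Both the balance of rises and falls and their number depended on settings. The median of all features tested lay at 0.32 on the log2 scale, a 1.25-fold shift towards KDM4E-SCNT. Median-ratio scaling, which sets that shift to 0.02, gave 2096 members higher and 2757 lower, beside 14.2% and 18.6% of all features tested, so that 43.2% of the members' calls were higher in place of 66.0%. Quantile normalization gave 2090 and 2105 beside 14.1% and 14.2% of all features, with 49.8% of the members' calls higher. All 1636 falls and 2096 of the 3175 rises were also called in the same direction with median-ratio scaling, and none was called in the opposite one. This scaling moves differences downwards, so the falls were bound to keep their direction. That they stayed called is therefore no separate support for them. Without KDM4E-SCNT replicate 2 the members called were 1060 higher and 459 lower, beside 7.37% and 3.09% of all features tested. Without the other KDM4E-SCNT library, replicate 1, they were 2805 and 1516, beside 20.1% and 10.2%. In both directions together 3227 members were called without SCNT replicate 1 and 3266 without SCNT replicate 3, beside 21.7% and 22.0% of all features. A core of 919 rises and 364 falls was called with both KDM4E-SCNT libraries and with either of them left out.

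The oocyte's growth factors and egg coat proteins were higher in KDM4E-SCNT. All 10 listed genes were members, and 8 rose and none fell. The rises are 80.0%, beside 24.0% of all members. GDF9 and BMP15 are growth factors by which the oocyte signals to the cells around it. GDF9 stood at 24.5, 27.6 and 19.7 FPKM in SCNT and 138 and 450.3 in KDM4E-SCNT, a 10.1-fold rise (3.34 ± 0.42, adjusted p = 0.000615). BMP15 stood at 205, 186 and 205 FPKM in SCNT and 599.7 and 829 in KDM4E-SCNT (1.82 ± 0.30, adjusted p = 0.00159). For both genes the SCNT libraries were close together and both KDM4E-SCNT libraries lay well above them. The zona pellucida is the glycoprotein coat of the egg. Its gene ZP2 was at 41.3, 46.8 and 38.9 FPKM in SCNT and 208 and 490.4 in KDM4E-SCNT (2.89 ± 0.35, adjusted p = 0.000577). ZP4 was at 49.6, 59.5 and 95.0 FPKM in SCNT and 245 and 466 in KDM4E-SCNT (2.35 ± 0.48, adjusted p = 0.0038), and ZP3 at 12.9, 12.6 and 12.1 FPKM in SCNT and 35.9 and 53.6 in KDM4E-SCNT (1.73 ± 0.50, adjusted p = 0.0193). KIT, the receptor by which oocytes receive signals from granulosa cells, was at 3.33, 3.00 and 4.04 FPKM in SCNT and 14.2 and 34.2 in KDM4E-SCNT (2.38 ± 0.39, adjusted p = 0.00141). The oocyte-secreted OOSP1 was at 842, 3479.9 and 2593 FPKM in SCNT and 7989 and 9761 in KDM4E-SCNT (2.17 ± 0.46, adjusted p = 0.00493), with SCNT replicate 1 well below the other libraries of its group. BMPR2, a receptor of BMP15, also rose (1.30 ± 0.36, adjusted p = 0.016). KITLG, the ligand of KIT, was at 17.7, 31.3 and 33.5 FPKM in SCNT and 9.36 and 16.5 in KDM4E-SCNT (adjusted p = 0.101) and TGFBR1 at 19.2, 9.84 and 17.1 FPKM in SCNT and 8.77 and 9.56 in KDM4E-SCNT (adjusted p = 0.204), and neither was called. The growth factor and egg coat list had 4 rises and 0 falls without KDM4E-SCNT replicate 2 and 6 and 2 with median-ratio scaling. ZP4, ZP3, OOSP1 and BMPR2 were no longer called without KDM4E-SCNT replicate 2 (adjusted p from 0.0555 to 0.158). ZP3 was not called without SCNT replicate 3 or with median-ratio scaling (adjusted p from 0.0548 to 0.0569) and BMPR2 without SCNT replicate 1 or with median-ratio scaling or with quantile normalization (adjusted p from 0.0583 to 0.0673).

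The NLRP genes and other components of the subcortical maternal complex, a protein assembly under the egg membrane that early cleavage needs, rose together. All 7 listed genes were members and all 7 were called higher, beside 24.0% of all members, with differences from 0.94 to 2.57. NLRP14 was at 20.5, 32.3 and 24.2 FPKM in SCNT and 113 and 212 in KDM4E-SCNT (2.57 ± 0.34, adjusted p = 0.000666). OOEP, a core component of the complex, was at 24.2, 42.1 and 24.2 FPKM in SCNT and 98.2 and 169 in KDM4E-SCNT (2.11 ± 0.35, adjusted p = 0.00158). NLRP5, also called MATER, was at 7.26, 29.0 and 9.83 FPKM in SCNT and 52.3 and 79.4 in KDM4E-SCNT (2.24 ± 0.56, adjusted p = 0.0103). SCNT replicate 2 was the highest SCNT library for NLRP5 and NLRP14, and the groups still did not overlap. PADI6, a component of egg cytoplasmic lattices, was at 4.10, 4.52 and 2.10 FPKM in SCNT and 13.6 and 22.3 in KDM4E-SCNT (2.06 ± 0.46, adjusted p = 0.00631). NLRP7 was at 26.3, 32.9 and 36.6 FPKM in SCNT and 70.8 and 275 in KDM4E-SCNT (2.11 ± 0.46, adjusted p = 0.00556), and NLRP9 at 13.3, 18.0 and 20.4 FPKM in SCNT and 47.1 and 110.2 in KDM4E-SCNT (2.02 ± 0.41, adjusted p = 0.00376). Replicate 2 was the higher of the KDM4E-SCNT libraries for each of these. The smallest rise was that of NLRP8 (0.94 ± 0.33, adjusted p = 0.0424). Summed over the list, the genes took 0.0168 to 0.026% of FPKM in SCNT, 0.0583 and 0.132% in KDM4E-SCNT and 0.156 to 0.18% in IVF embryos. The NLRP list had 2 rises and 0 falls without KDM4E-SCNT replicate 2. The calls of NLRP5, PADI6, NLRP7, NLRP9 and NLRP8 did not hold without KDM4E-SCNT replicate 2 (adjusted p from 0.0634 to 0.333). NLRP8 was not called without SCNT replicate 1 or 3 or with median-ratio scaling or with quantile normalization (adjusted p from 0.0557 to 0.264).

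Factors that run oocyte transcription and hold the egg in meiosis rose as well, 12 of 13 members, with none lower. The rises are 92.3%, beside 24.0% of all members. MOS, the kinase that holds the egg at metaphase of the second meiotic division, was at 21.0, 15.5 and 13.8 FPKM in SCNT and 99.0 and 128 in KDM4E-SCNT (2.70 ± 0.39, adjusted p = 0.000975). FBXO43, an inhibitor of the anaphase-promoting complex, was at 3.01, 3.37 and 6.13 FPKM in SCNT and 27.4 and 26.6 in KDM4E-SCNT (2.48 ± 0.39, adjusted p = 0.00123). WEE2, the oocyte kinase that restrains CDK1, was at 20.0, 42.6 and 22.9 FPKM in SCNT and 100.3 and 149 in KDM4E-SCNT (2.14 ± 0.40, adjusted p = 0.00239). In these 3 genes the lower of the KDM4E-SCNT libraries was more than the highest SCNT library by a wide margin. The linker histone of oocytes, H1FOO, was at 22.9, 25.8 and 19.8 FPKM in SCNT and 99.8 and 120.0 in KDM4E-SCNT (2.22 ± 0.50, adjusted p = 0.00624). SLBP2, described as an oocyte protein that binds the stem loop of histone mRNA, was at 87.5, 102 and 63.9 FPKM in SCNT and 641 and 1724 in KDM4E-SCNT (3.65 ± 0.38, adjusted p = 0.000422), which was one of the largest rises among abundant genes. ACCSL was at 78.8, 73.3 and 86.2 FPKM in SCNT and 315 and 556 in KDM4E-SCNT (2.39 ± 0.33, adjusted p = 0.000816), and the B-type cyclin CCNB3 at 10.9, 17.8 and 20.9 FPKM in SCNT and 59.1 and 99.7 in KDM4E-SCNT (2.19 ± 0.38, adjusted p = 0.00178). NPM2, the histone chaperone of eggs, rose from a mean of 74.1 FPKM (1.56 ± 0.37, adjusted p = 0.00832). The oocyte transcription factors rose from low levels. NOBOX, counted among the 12 rises, reached 1 FPKM in KDM4E-SCNT only, so a difference between the groups is built into its choice. NOBOX was at 0.47, 0.30 and 0.06 FPKM in SCNT and 3.52 and 2.34 in KDM4E-SCNT (1.62 ± 0.46, adjusted p = 0.0184), FIGLA at 0, 1.04 and 0.51 FPKM in SCNT and 1.63 and 4.06 in KDM4E-SCNT (1.33 ± 0.48, adjusted p = 0.0491) and LHX8 at 3.76, 9.26 and 6.33 FPKM in SCNT and 17.3 and 22.2 in KDM4E-SCNT (1.54 ± 0.41, adjusted p = 0.0133). FBXO5, which also inhibits the anaphase-promoting complex and is not confined to oocytes, was at 197, 126 and 172 FPKM in SCNT and 98.9 and 107 in KDM4E-SCNT and was not called (adjusted p = 0.102). The meiotic arrest list had 6 rises and 0 falls without KDM4E-SCNT replicate 2. Of the 15 genes found, ADCY3 and GPR3 did not reach the level for membership. H1FOO, NPM2, NOBOX, FIGLA and LHX8 missed the threshold without KDM4E-SCNT replicate 2 (adjusted p from 0.0643 to 0.343). NOBOX was not called without KDM4E-SCNT replicate 1 or SCNT replicate 3 or with quantile normalization (adjusted p from 0.0618 to 0.0898), FIGLA without SCNT replicate 1 or 3 or with median-ratio scaling or with quantile normalization (adjusted p from 0.0967 to 0.158) and LHX8 without SCNT replicate 1 or with median-ratio scaling (adjusted p from 0.0507 to 0.0519).

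**Figure D2:**
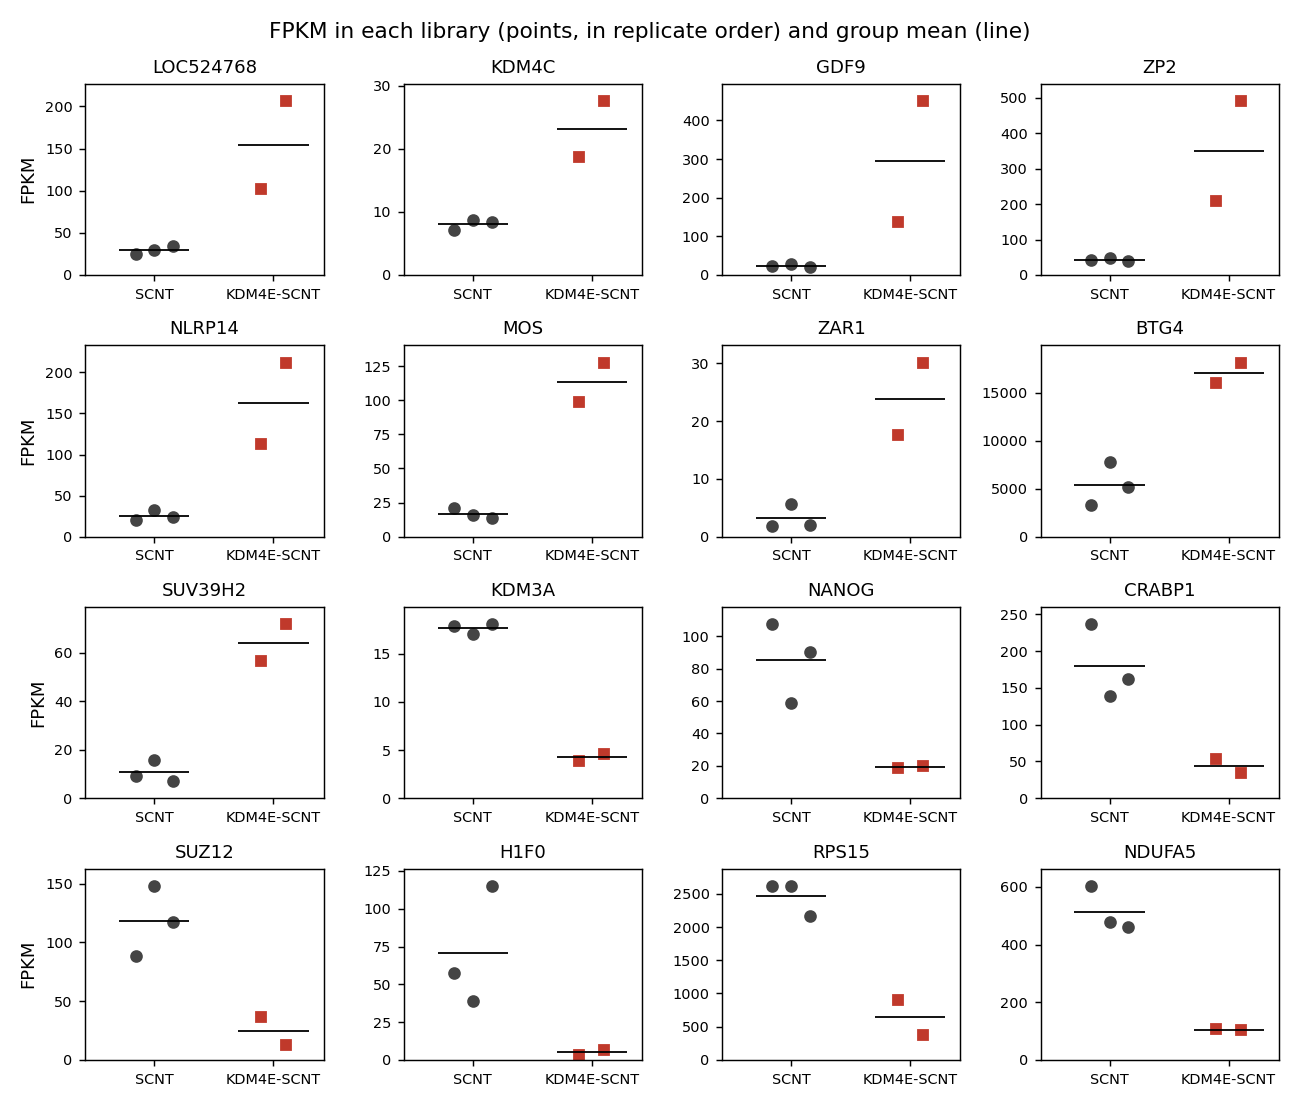
FPKM of 16 genes in each library, on linear axes that start at 0. Grey circles are the 3 SCNT libraries and red squares the 2 KDM4E-SCNT libraries, each in replicate order, and the horizontal lines are group means. LOC524768, KDM4C and the oocyte genes GDF9, ZP2, NLRP14, MOS, ZAR1 and BTG4 were higher in both KDM4E-SCNT libraries, as was SUV39H2, while KDM3A, NANOG, CRABP1, SUZ12, H1F0, RPS15 and NDUFA5 were lower, with no overlap of the groups in any panel. All 16 were picked among called genes, nearly all of which have groups without overlap.

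Genes that store maternal mRNA and control its translation were mostly higher. All 21 listed genes were members, of which 13 rose and 2 fell, 61.9% and 9.52% beside 24.0% and 12.4% of all members. ZAR1, which is needed for the step from oocyte to embryo and binds stored mRNA, was at 1.91, 5.61 and 2.03 FPKM in SCNT and 17.5 and 30.1 in KDM4E-SCNT (2.63 ± 0.42, adjusted p = 0.0014). Its relative ZAR1L was at 89.5, 80.0 and 104 FPKM in SCNT and 256 and 299.6 in KDM4E-SCNT (1.60 ± 0.33, adjusted p = 0.0041). CPEB1, which controls the poly(A) tails of dormant mRNA, was at 28.5, 30.9 and 37.7 FPKM in SCNT and 117 and 147 in KDM4E-SCNT (2.00 ± 0.50, adjusted p = 0.0101). The RNA-binding protein DAZL was at 1.30, 9.85 and 6.96 FPKM in SCNT and 43.3 and 38.0 in KDM4E-SCNT (2.83 ± 0.64, adjusted p = 0.00638), with SCNT replicate 1 much the lowest. EIF4E1B, the oocyte form of the cap-binding protein, was at 11.8, 17.4 and 22.4 FPKM in SCNT and 61.6 and 78.7 in KDM4E-SCNT (2.00 ± 0.39, adjusted p = 0.00297). BICC1 was at 5.32, 6.99 and 5.21 FPKM in SCNT and 23.1 and 29.9 in KDM4E-SCNT (2.00 ± 0.32, adjusted p = 0.0014). The IGF2BP family split, since IGF2BP3 rose (2.04 ± 0.31, adjusted p = 0.00114) from a mean of 29.0 FPKM while IGF2BP1 fell. IGF2BP1 was at 10.5, 15 and 14.0 FPKM in SCNT and 5.90 and 0.60 in KDM4E-SCNT (-2.08 ± 0.60, adjusted p = 0.0193), with replicate 2 much the lower KDM4E-SCNT library. The storage list had 6 rises and 0 falls without KDM4E-SCNT replicate 2. CPEB1, DAZL and IGF2BP1 fell short of a call without KDM4E-SCNT replicate 2 (adjusted p from 0.0533 to 0.272). IGF2BP1 was not called without SCNT replicate 2 or 3 (adjusted p from 0.0508 to 0.057).

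The machinery of mRNA decay moved both ways. Of 30 members, 9 rose and 4 fell, which is 30.0% and 13.3% beside 24.0% and 12.4% of all members. BTG4, the adaptor that brings the CCR4-NOT deadenylase to maternal mRNA, is among the most abundant mRNAs of these embryos and was at 3269, 7818 and 5207 FPKM in SCNT and 16017 and 18165 in KDM4E-SCNT (1.74 ± 0.32, adjusted p = 0.00236). PARN, a poly(A)-specific nuclease, was at 18.0, 48.0 and 21.8 FPKM in SCNT and 114 and 171 in KDM4E-SCNT (2.35 ± 0.42, adjusted p = 0.002). DICER1, which cuts small RNA precursors, was at 1.67, 1.67 and 1.88 FPKM in SCNT and 8.81 and 9.04 in KDM4E-SCNT (1.86 ± 0.36, adjusted p = 0.00305). Of the subunits of CCR4-NOT, CNOT3, CNOT4, CNOT6L and CNOT7 rose, with differences of 0.89 to 1.45. The falls were in TOB1, TOB2, EDC3 and ZCCHC6. ZCCHC6, which adds uridines to mRNA that has lost its tail, was at 294, 170.2 and 249.9 FPKM in SCNT and 98.3 and 65.5 in KDM4E-SCNT (-1.52 ± 0.33, adjusted p = 0.00551). TOB1, an antiproliferative adaptor of the same deadenylase, was at 187, 324 and 196 FPKM in SCNT and 108 and 37.7 in KDM4E-SCNT (-1.82 ± 0.44, adjusted p = 0.00902). The decay list had 3 rises and 0 falls without KDM4E-SCNT replicate 2 and 5 and 6 with median-ratio scaling. ZCCHC6, TOB1, CNOT3, CNOT4, CNOT6L and CNOT7 did not pass the test without KDM4E-SCNT replicate 2 (adjusted p from 0.0668 to 0.181). CNOT3 was not called without SCNT replicate 3 or with quantile normalization (adjusted p from 0.0733 to 0.0751), CNOT4 without KDM4E-SCNT replicate 1 or SCNT replicate 1 or with median-ratio scaling (adjusted p from 0.0535 to 0.189) and CNOT6L without SCNT replicate 1 or 2 or with median-ratio scaling (adjusted p from 0.0525 to 0.133). CNOT7 was not called without KDM4E-SCNT replicate 1 or SCNT replicate 1, 2 or 3 or with median-ratio scaling (adjusted p from 0.0669 to 0.303).

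Genes used as markers of embryonic genome activation were lower more often than higher. Of 22 listed genes found 21 were members, of which 7 fell and 3 rose. Those are 33.3% and 14.3%, beside 12.4% lower and 24.0% higher among all members. CRABP1, which carries retinoic acid, was at 236, 139 and 162 FPKM in SCNT and 53.4 and 34.7 in KDM4E-SCNT (-1.99 ± 0.38, adjusted p = 0.00276). EIF1AX, a translation initiation factor, was at 1563, 1283 and 1289 FPKM in SCNT and 782 and 468 in KDM4E-SCNT (-1.18 ± 0.28, adjusted p = 0.0082). KLF5, a transcription factor of the early embryo, was at 25.4, 18.0 and 22.6 FPKM in SCNT and 11.3 and 2.46 in KDM4E-SCNT (-1.80 ± 0.49, adjusted p = 0.0153). In each of the 3 the highest KDM4E-SCNT library was below the lowest SCNT library. ZNF280A was at 11.0, 7.27 and 5.09 FPKM in SCNT and 0.09 and 0.96 in KDM4E-SCNT (-2.53 ± 0.43, adjusted p = 0.00178). It reached 1 FPKM in SCNT only, so a difference between the groups is built into its choice. HSPA8, a constitutive chaperone, was at 1325, 737 and 799 FPKM in SCNT and 511 and 342 in KDM4E-SCNT (-1.14 ± 0.31, adjusted p = 0.0156). CCNA1 and NFYA also fell, by 1.35 and 1.12. KLF17, a marker of major activation, was at 642, 313 and 601 FPKM in SCNT and 415 and 267 in KDM4E-SCNT and was not called (adjusted p = 0.312). The rises were in SUPT4H1, HMGN1 and POLR2A. POLR2A, the largest subunit of RNA polymerase II, was at 1.12, 1.01 and 1.74 FPKM in SCNT and 5.53 and 5.09 in KDM4E-SCNT (1.47 ± 0.42, adjusted p = 0.0176). HMGN1 was at 45.8, 55.0 and 33.2 FPKM in SCNT and 71.8 and 122 in KDM4E-SCNT (1.08 ± 0.34, adjusted p = 0.0277). The activation list had 0 rises and 2 falls without KDM4E-SCNT replicate 2, 1 and 4 without SCNT replicate 1, 1 and 5 without SCNT replicate 3 and 1 and 11 with median-ratio scaling. EIF1AX, KLF5, HSPA8, POLR2A, HMGN1, CCNA1 and NFYA were no longer called without KDM4E-SCNT replicate 2 (adjusted p from 0.0861 to 0.311). EIF1AX was not called with quantile normalization (adjusted p = 0.1), KLF5 without SCNT replicate 1 (adjusted p = 0.0524) and HSPA8 without SCNT replicate 1 or with quantile normalization (adjusted p from 0.0639 to 0.1). POLR2A was not called without KDM4E-SCNT replicate 1 or SCNT replicate 1 or with quantile normalization (adjusted p from 0.0537 to 0.0708), HMGN1 without SCNT replicate 1 or 3 or with median-ratio scaling (adjusted p from 0.059 to 0.163) and CCNA1 without SCNT replicate 1 or 3 (adjusted p from 0.059 to 0.11). NFYA was not called without SCNT replicate 1, 2 or 3 (adjusted p from 0.0582 to 0.105).

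Regulators of pluripotency and early lineages split between rises and falls, 8 and 6 of 27 members. Those are 29.6% and 22.2%, beside 24.0% and 12.4% of all members. NANOG, a core pluripotency factor, was at 107, 59.0 and 90.6 FPKM in SCNT and 18.5 and 20.1 in KDM4E-SCNT (-2.05 ± 0.45, adjusted p = 0.00543). The KDM4E-SCNT libraries had nearly equal NANOG levels. PDGFRA, a receptor of primitive endoderm, was at 13.9, 14.0 and 19.3 FPKM in SCNT and 2.57 and 2.98 in KDM4E-SCNT (-2.14 ± 0.58, adjusted p = 0.0152), and GATA6, a transcription factor of the same lineage, at 20.9, 12.6 and 13.8 FPKM in SCNT and 8.20 and 2.58 in KDM4E-SCNT (-1.51 ± 0.50, adjusted p = 0.0341). TEAD4, which acts in trophectoderm, was at 9.63, 5.21 and 8.79 FPKM in SCNT and 2.56 and 1.52 in KDM4E-SCNT (-1.53 ± 0.40, adjusted p = 0.0122), and TFAP2C, which does so too, at 292, 402 and 297 FPKM in SCNT and 198 and 64.0 in KDM4E-SCNT (-1.53 ± 0.42, adjusted p = 0.0164). Replicate 2 was the lower KDM4E-SCNT library for GATA6, TEAD4 and TFAP2C. GDF3, a ligand of the TGF-beta family, rose from 5.21, 7.37 and 3.87 to 36.4 and 109 FPKM (3.34 ± 0.45, adjusted p = 0.000779). DPPA3, also called STELLA, a maternal protein that shields DNA methylation in the zygote, was at 1134, 1735 and 1667 FPKM in SCNT and 3824 and 4497 in KDM4E-SCNT (1.48 ± 0.26, adjusted p = 0.00196). KRT8 was at 0, 0.41 and 0.48 FPKM in SCNT and 3.71 and 4.77 in KDM4E-SCNT (2.03 ± 0.41, adjusted p = 0.0036) and LIN28A at 0.48, 1.25 and 0.69 FPKM in SCNT and 4.10 and 4.55 in KDM4E-SCNT (1.58 ± 0.39, adjusted p = 0.00931), both from low levels. KRT8 reached 1 FPKM in KDM4E-SCNT only, so a difference between the groups is built into its choice. POU5F1, also called OCT4, was at 12.4, 7.98 and 6.10 FPKM in SCNT and 7.77 and 24.0 in KDM4E-SCNT (adjusted p = 0.312), and SOX2 at 3.83, 2.67 and 4.22 FPKM in SCNT and 3.99 and 2.72 in KDM4E-SCNT (adjusted p = 0.9). The pluripotency list had 3 rises and 1 fall without KDM4E-SCNT replicate 2, 6 and 8 without KDM4E-SCNT replicate 1, 5 and 3 without SCNT replicate 1, 5 and 10 with median-ratio scaling and 6 and 6 with quantile normalization. The calls of PDGFRA, GATA6, TEAD4, TFAP2C and LIN28A did not hold without KDM4E-SCNT replicate 2 (adjusted p from 0.068 to 0.339). PDGFRA was not called without KDM4E-SCNT replicate 1 or SCNT replicate 3 (adjusted p from 0.054 to 0.0641), GATA6 without SCNT replicate 1 or 3 (adjusted p from 0.0691 to 0.112) and TEAD4 without SCNT replicate 1 (adjusted p = 0.0525). TFAP2C was not called without SCNT replicate 2 or with quantile normalization (adjusted p from 0.05 to 0.0505).

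Among the enzymes that write, read and erase H3K9 methylation, 3 of 26 members rose and 4 fell. Those are 11.5% and 15.4%, beside 24.0% and 12.4% of all members. SUV39H2, a methyltransferase of H3K9, was at 9.27, 15.6 and 7.13 FPKM in SCNT and 56.5 and 71.8 in KDM4E-SCNT (2.54 ± 0.36, adjusted p = 0.000847). SETDB1, another, was at 4.00, 4.63 and 3.08 FPKM in SCNT and 10.7 and 14.4 in KDM4E-SCNT (1.47 ± 0.38, adjusted p = 0.0125). KDM4C, given above, was the remaining rise. KDM3A, a demethylase of H3K9, was at 17.9, 17.1 and 18.1 FPKM in SCNT and 3.87 and 4.60 in KDM4E-SCNT (-1.84 ± 0.39, adjusted p = 0.00492), a fall in both KDM4E-SCNT libraries of about equal size. TRIM28, the corepressor that brings SETDB1 to zinc finger proteins, was at 24.8, 14.3 and 13.8 FPKM in SCNT and 6.34 and 4.76 in KDM4E-SCNT (-1.47 ± 0.39, adjusted p = 0.0136). ATF7IP, a partner of SETDB1, was at 48.2, 47.0 and 52.2 FPKM in SCNT and 26.1 and 19.3 in KDM4E-SCNT (-1.10 ± 0.37, adjusted p = 0.0389), and HP1BP3 at 87.5, 99.0 and 109.6 FPKM in SCNT and 50.9 and 53.5 in KDM4E-SCNT (-0.90 ± 0.28, adjusted p = 0.0276). SUV39H1 was at 2.27, 3.14 and 2.65 FPKM in SCNT and 2.80 and 0.45 in KDM4E-SCNT (adjusted p = 0.293), and the heterochromatin protein gene CBX5 at 252, 299.9 and 252 FPKM in SCNT and 151 and 146 in KDM4E-SCNT (adjusted p = 0.0526). EHMT1 and EHMT2, which form another H3K9 methyltransferase, stayed at or under 2.25 FPKM in all 5 libraries and were not called (adjusted p = 0.275 and 0.142). The called methyltransferases were thus higher, and demethylases were called in both directions. The H3K9 list had 1 rise and 1 fall without KDM4E-SCNT replicate 2. SETDB1, TRIM28, ATF7IP and HP1BP3 missed the threshold without KDM4E-SCNT replicate 2 (adjusted p from 0.0946 to 0.225). TRIM28 was not called without SCNT replicate 1 (adjusted p = 0.0593), ATF7IP without KDM4E-SCNT replicate 1 or SCNT replicate 1, 2 or 3 (adjusted p from 0.0557 to 0.104) and HP1BP3 without KDM4E-SCNT replicate 1 or SCNT replicate 2 or 3 (adjusted p from 0.0526 to 0.0956).

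DNA methylation genes had 6 rises and 3 falls among 14 members, 42.9% and 21.4% beside 24.0% and 12.4% of all members. DNMT1, the maintenance methyltransferase, was at 9.41, 11.0 and 15.9 FPKM in SCNT and 26.6 and 29.0 in KDM4E-SCNT (1.17 ± 0.37, adjusted p = 0.0301). DNMT3B, which methylates DNA anew, was at 0.95, 1.04 and 1.05 FPKM in SCNT and 3.85 and 5.27 in KDM4E-SCNT (1.45 ± 0.37, adjusted p = 0.0106). TET2, which oxidises methylated cytosine, was at 1.81, 2.81 and 1.78 FPKM in SCNT and 6.54 and 6.95 in KDM4E-SCNT (1.32 ± 0.36, adjusted p = 0.0141). Their groups did not overlap. ZBTB33, also called KAISO, a reader of methylated DNA, was at 5.90, 11.3 and 5.37 FPKM in SCNT and 27.9 and 43.9 in KDM4E-SCNT (2.15 ± 0.37, adjusted p = 0.00186). DPPA3, which is on this list too, rose by 1.48. APEX1, a nuclease of base excision repair, fell from 422, 473 and 410.3 to 187 and 145 FPKM (-1.39 ± 0.32, adjusted p = 0.00726). HELLS, a remodeller that DNA methylation needs, fell from 64.5, 54.7 and 62.0 to 34.0 and 19.9 FPKM (-1.18 ± 0.32, adjusted p = 0.0153), and MBD2 by 1.08. DNMT3A was at 0.32, 1.22 and 0.68 FPKM in SCNT and 2.12 and 2.84 in KDM4E-SCNT (adjusted p = 0.0661) and UHRF1, the partner of DNMT1, at 61.5, 40.7 and 68.4 FPKM in SCNT and 75.2 and 112 in KDM4E-SCNT (adjusted p = 0.166). The DNA methylation list had 2 rises and 0 falls without KDM4E-SCNT replicate 2, 3 and 4 with median-ratio scaling and 3 and 4 with quantile normalization. DNMT1, DNMT3B, TET2, APEX1, HELLS and MBD2 fell short of a call without KDM4E-SCNT replicate 2 (adjusted p from 0.0702 to 0.168). DNMT1 was not called without KDM4E-SCNT replicate 1 or SCNT replicate 1 or 2 or with median-ratio scaling or with quantile normalization (adjusted p from 0.0652 to 0.155), TET2 with median-ratio scaling or with quantile normalization (adjusted p from 0.0549 to 0.0677) and HELLS without SCNT replicate 3 (adjusted p = 0.0505). MBD2 was not called without KDM4E-SCNT replicate 1 or SCNT replicate 2 or 3 (adjusted p from 0.0772 to 0.106).

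Polycomb and the enzymes of H3K4, H3K27, H3K36 and H4K20 methylation had 6 rises and 5 falls among 31 members. Those are 19.4% and 16.1%, beside 24.0% and 12.4% of all members. The Polycomb complex that methylates H3K27 split between its subunits. SUZ12 was at 88.6, 148 and 117 FPKM in SCNT and 36.3 and 12.4 in KDM4E-SCNT (-2.38 ± 0.46, adjusted p = 0.00284), and EED at 108, 96.5 and 111 FPKM in SCNT and 40.5 and 43.6 in KDM4E-SCNT (-1.30 ± 0.29, adjusted p = 0.00592). EZH2, its catalytic subunit, was at 23.5, 18.8 and 23.2 FPKM in SCNT and 19.4 and 15.9 in KDM4E-SCNT and was not called (adjusted p = 0.567). KDM6A, which removes H3K27 methylation, fell from 8.30, 10.7 and 12.4 to 3.69 and 1.65 FPKM (-1.68 ± 0.40, adjusted p = 0.00773). SETD2, the H3K36 methyltransferase, fell from 57.1, 55.1 and 59.6 to 30.4 and 12.6 FPKM (-1.50 ± 0.47, adjusted p = 0.0288), and BMI1 by 1.36. KMT5B, a methyltransferase of H4K20, rose from 28.4, 41.3 and 60.3 to 149 and 207 FPKM (2.06 ± 0.36, adjusted p = 0.00192). NSD3 rose by 1.61, KMT2C by 1.56, WDR5 by 1.46, KMT2E by 1.38 and JARID2 by 1.32. The Polycomb and methyltransferase list had 2 rises and 2 falls without KDM4E-SCNT replicate 2, 4 and 3 without SCNT replicate 3, 3 and 8 with median-ratio scaling and 4 and 7 with quantile normalization. KDM6A, SETD2, BMI1, NSD3, WDR5, KMT2E and JARID2 did not pass the test without KDM4E-SCNT replicate 2 (adjusted p from 0.051 to 0.293). SETD2 was not called without SCNT replicate 1, 2 or 3 (adjusted p from 0.0559 to 0.0773), BMI1 without SCNT replicate 1 or 3 (adjusted p from 0.0517 to 0.0633) and WDR5 without SCNT replicate 2 or 3 or with median-ratio scaling (adjusted p from 0.0544 to 0.0748). KMT2E was not called without KDM4E-SCNT replicate 1 or SCNT replicate 1 or 3 or with median-ratio scaling or with quantile normalization (adjusted p from 0.0637 to 0.102) and JARID2 with median-ratio scaling or with quantile normalization (adjusted p from 0.0602 to 0.0719).

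Histone acetylation enzymes and the proteins that bind acetylated histones had 11 rises and 6 falls among 27 members. Those are 40.7% and 22.2%, beside 24.0% and 12.4% of all members. The acetyltransferases were on both sides. KAT6B was at 14.9, 18.6 and 20.4 FPKM in SCNT and 44.9 and 50.6 in KDM4E-SCNT (1.37 ± 0.36, adjusted p = 0.0128), and KAT2A at 1.59, 1.19 and 1.13 FPKM in SCNT and 4.88 and 7.92 in KDM4E-SCNT (1.66 ± 0.43, adjusted p = 0.0119). KAT8 was at 31.3, 19.9 and 19.6 FPKM in SCNT and 8.43 and 6.52 in KDM4E-SCNT (-1.51 ± 0.41, adjusted p = 0.0144), and HAT1, which acetylates new histones, at 368, 344 and 365 FPKM in SCNT and 249.5 and 94.5 in KDM4E-SCNT (-1.22 ± 0.40, adjusted p = 0.0354). The deacetylases were on both sides too. Of these, HDAC7 reached 1 FPKM in KDM4E-SCNT only, so a difference between the groups is built into its choice. HDAC7 was at 0.41, 0.43 and 0.25 FPKM in SCNT and 1.92 and 4.5 in KDM4E-SCNT (1.56 ± 0.40, adjusted p = 0.011), and HDAC2 at 49.8, 43.4 and 42.0 FPKM in SCNT and 25.4 and 19.1 in KDM4E-SCNT (-1.0 ± 0.31, adjusted p = 0.0267). HDAC1 was at 41.5, 32.7 and 51.1 FPKM in SCNT and 30.7 and 23.7 in KDM4E-SCNT and was not called (adjusted p = 0.201). BRD3, a reader of acetylation, rose by 1.37. The acetylation list had 0 rises and 0 falls without KDM4E-SCNT replicate 2, 8 and 1 without SCNT replicate 1, 8 and 3 without SCNT replicate 2, 6 and 2 without SCNT replicate 3, 4 and 8 with median-ratio scaling and 4 and 5 with quantile normalization. KAT6B, KAT2A, KAT8, HAT1, HDAC7, HDAC2 and BRD3 were no longer called without KDM4E-SCNT replicate 2 (adjusted p from 0.0928 to 0.399). KAT6B was not called with median-ratio scaling (adjusted p = 0.073), KAT8 without SCNT replicate 1 (adjusted p = 0.0581) and HAT1 without SCNT replicate 1, 2 or 3 or with quantile normalization (adjusted p from 0.0638 to 0.121). HDAC2 was not called without SCNT replicate 1 or 3 (adjusted p from 0.061 to 0.0815).

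Histone variants and chaperones had 3 rises and 6 falls among 20 members. H1F0, a linker histone of non-dividing body cells, was at 57.4, 38.9 and 115 FPKM in SCNT and 3.35 and 6.81 in KDM4E-SCNT (-3.47 ± 0.47, adjusted p = 0.000779), an 11.1-fold fall. H3F3B, which encodes the variant H3.3 and is among the most abundant mRNAs, was at 9611, 9967 and 10034 FPKM in SCNT and 5809 and 2995 in KDM4E-SCNT (-1.24 ± 0.29, adjusted p = 0.00701). H3F3A, which encodes the same protein, was at 687, 697 and 643 FPKM in SCNT and 884 and 746 in KDM4E-SCNT and was not called (adjusted p = 0.465). H2AFV, an H2A variant, fell from 939.6, 733 and 834 to 494 and 209 FPKM (-1.37 ± 0.35, adjusted p = 0.011), H2AFY, the macroH2A gene, by 1.28 and the chaperones DAXX and ASF1A by 1.37 and 0.99. SLBP, which binds the stem loop of replication-dependent histone mRNA, rose from 97.6, 70.0 and 50.5 to 154 and 173 FPKM (1.2 ± 0.32, adjusted p = 0.0135), and the chaperone genes SSRP1 and CHAF1A by 1.04 and 1.01. Near-identical histone genes can share reads, so single histone genes are uncertain. The histone variant list had 0 rises and 2 falls without KDM4E-SCNT replicate 2, 0 and 3 without SCNT replicate 3 and 0 and 8 with median-ratio scaling. Chromatin remodellers had 7 rises and 3 falls among 29 members. Those are 24.1% and 10.3%, close to the shares of all members. SMARCA2, an ATPase of the SWI/SNF complex, was at 16.6, 37.6 and 31.3 FPKM in SCNT and 62.1 and 120.1 in KDM4E-SCNT (1.64 ± 0.40, adjusted p = 0.00931). CHD4, the ATPase of the NuRD complex, was at 19.1, 17.0 and 23.8 FPKM in SCNT and 7.12 and 8.18 in KDM4E-SCNT (-1.27 ± 0.34, adjusted p = 0.0136), while another NuRD gene, MTA3, rose from 23.3, 41.9 and 20.3 to 77.5 and 75.3 FPKM (1.46 ± 0.36, adjusted p = 0.00913). The remodeller list had 0 rises and 0 falls without KDM4E-SCNT replicate 2, 4 and 1 without SCNT replicate 3, 2 and 5 with median-ratio scaling and 3 and 3 with quantile normalization. The calls of H3F3B, H2AFV, SLBP, SMARCA2, CHD4, MTA3, H2AFY, DAXX, ASF1A, SSRP1 and CHAF1A did not hold without KDM4E-SCNT replicate 2 (adjusted p from 0.0607 to 0.279). H2AFV was not called with quantile normalization (adjusted p = 0.0576), SLBP without SCNT replicate 3 or with median-ratio scaling (adjusted p from 0.0612 to 0.0943) and CHD4 without KDM4E-SCNT replicate 1 or SCNT replicate 3 (adjusted p from 0.0548 to 0.0558). MTA3 was not called with median-ratio scaling (adjusted p = 0.0508), H2AFY without SCNT replicate 1 or 3 (adjusted p from 0.0521 to 0.0531) and DAXX without SCNT replicate 2 or 3 (adjusted p from 0.0697 to 0.07). ASF1A was not called without KDM4E-SCNT replicate 1 or SCNT replicate 2 or 3 or with quantile normalization (adjusted p from 0.0591 to 0.0781), SSRP1 without KDM4E-SCNT replicate 1 or SCNT replicate 1, 2 or 3 or with median-ratio scaling or with quantile normalization (adjusted p from 0.06 to 0.223) and CHAF1A without SCNT replicate 1 or 3 or with median-ratio scaling or with quantile normalization (adjusted p from 0.09 to 0.208).

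Imprinted genes, which are read from 1 parental copy in later tissues, had 3 rises and 2 falls among 13 members. Those are 23.1% and 15.4%, close to the 24.0% and 12.4% of all members. SNRPN was at 106, 115 and 114 FPKM in SCNT and 35.9 and 12.4 in KDM4E-SCNT (-2.34 ± 0.44, adjusted p = 0.00249), and IMPACT at 40.8, 58.8 and 47.6 FPKM in SCNT and 25.6 and 12.3 in KDM4E-SCNT (-1.40 ± 0.37, adjusted p = 0.0124). COPG2 was at 4.20, 7.02 and 6.06 FPKM in SCNT and 22.9 and 42.1 in KDM4E-SCNT (2.27 ± 0.37, adjusted p = 0.00144), ZIM2 at 1.18, 1.19 and 0.43 FPKM in SCNT and 5.72 and 7.38 in KDM4E-SCNT (1.98 ± 0.37, adjusted p = 0.00242) and MEST at 6.39, 15.4 and 8.70 FPKM in SCNT and 20.7 and 37.9 in KDM4E-SCNT (1.46 ± 0.47, adjusted p = 0.0324). All 5 had groups that did not overlap. IGF2, CDKN1C, NNAT and ASCL2 were not members. Regulators of X inactivation had no rise and 4 falls among 10 members, so that 40.0% were lower beside 12.4% of all members. SMCHD1, a structural protein of the inactive X, was at 13.2, 11.4 and 10.5 FPKM in SCNT and 3.67 and 2.66 in KDM4E-SCNT (-1.61 ± 0.43, adjusted p = 0.014). YY1 was at 99.2, 109 and 111 FPKM in SCNT and 55.5 and 38.6 in KDM4E-SCNT (-1.18 ± 0.34, adjusted p = 0.0196), HNRNPU at 229.5, 191 and 249 FPKM in SCNT and 116 and 100 in KDM4E-SCNT (-1.04 ± 0.34, adjusted p = 0.0327), and EED is given above. RLIM was at 49.6, 57.5 and 68.5 FPKM in SCNT and 49.4 and 27.8 in KDM4E-SCNT (adjusted p = 0.208). Among the 664 members on the X chromosome 20.2% were higher and 15.8% lower, with a median difference of -0.01. The imprinted list had 2 rises and 1 fall without KDM4E-SCNT replicate 2, 2 and 2 without SCNT replicate 1, 2 and 2 without SCNT replicate 3, 2 and 4 with median-ratio scaling and 2 and 3 with quantile normalization. The X inactivation list had 0 rises and 1 fall without KDM4E-SCNT replicate 2 and 0 and 2 without SCNT replicate 3. IMPACT, MEST, SMCHD1, YY1 and HNRNPU missed the threshold without KDM4E-SCNT replicate 2 (adjusted p from 0.111 to 0.26). MEST was not called without SCNT replicate 1 or 3 or with median-ratio scaling or with quantile normalization (adjusted p from 0.0772 to 0.107), YY1 without SCNT replicate 3 (adjusted p = 0.062) and HNRNPU without KDM4E-SCNT replicate 1 or SCNT replicate 1 or 3 or with quantile normalization (adjusted p from 0.061 to 0.103).

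The ribosomal proteins of the cytosol fell together and in both KDM4E-SCNT libraries. Of 78 members 62 were called lower and none higher, 79.5% beside 12.4% of all members. Their summed share of FPKM was 12.6, 9.81 and 9.92% in the SCNT libraries, 5.66 and 3.87% in KDM4E-SCNT and 1.79 to 1.89% in IVF embryos. The median difference of the list was -1.33, where all features tested had 0.32. RPS15, in the small subunit, was at 2619.8, 2612 and 2161 FPKM in SCNT and 907 and 372 in KDM4E-SCNT (-2.08 ± 0.35, adjusted p = 0.0016). RPL6, in the large subunit, was at 1719, 1148 and 1356 FPKM in SCNT and 497 and 402 in KDM4E-SCNT (-1.63 ± 0.27, adjusted p = 0.0016), and RPS26 at 512, 539 and 467 FPKM in SCNT and 151 and 96.6 in KDM4E-SCNT (-2.05 ± 0.33, adjusted p = 0.00144). RPL7 was at 3228, 3142 and 2310.3 FPKM in SCNT and 964 and 495 in KDM4E-SCNT (-2.05 ± 0.35, adjusted p = 0.00184). For each gene both KDM4E-SCNT libraries were more than 2-fold below the lowest SCNT library. RPL13A (-2.11), RPL18 (-2.08) and the paralogue RPL22L1 (-2.37) also fell. The smallest called fall was in RPL19 (-0.91 ± 0.30, adjusted p = 0.0362). Many ribosomal protein genes have processed copies in the genome that can share their reads. The cytosolic ribosome list had 0 rises and 25 falls without KDM4E-SCNT replicate 2 and 1 and 36 with quantile normalization. RPL19, RPL13A and RPL22L1 fell short of a call without KDM4E-SCNT replicate 2 (adjusted p from 0.0599 to 0.101). RPL19 was not called without KDM4E-SCNT replicate 1 or SCNT replicate 1 or 3 or with quantile normalization (adjusted p from 0.0674 to 0.372).

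Other parts of the protein synthesis machinery fell too. The mitochondrial ribosomal proteins had 32 falls and 4 rises among 75 members. Those are 42.7% and 5.33%, beside 12.4% lower and 24.0% higher among all members. MRPL27 was at 457, 416 and 406 FPKM in SCNT and 71.0 and 56.9 in KDM4E-SCNT (-2.72 ± 0.28, adjusted p = 0.000422), one of the firmest falls in the data. MRPL48 was at 239, 244 and 251 FPKM in SCNT and 51.3 and 57.1 in KDM4E-SCNT (-2.16 ± 0.29, adjusted p = 0.000702), and the KDM4E-SCNT libraries lay close together for both. MRPS36 was at 48.4, 45.2 and 45.2 FPKM in SCNT and 121 and 109.8 in KDM4E-SCNT (1.30 ± 0.29, adjusted p = 0.00626), against the direction of the list. Ribosome biogenesis had 23 falls and 2 rises among 66 members (34.8% and 3.03%). NOP56, a core protein of the particles that methylate ribosomal RNA, was at 722, 401 and 538 FPKM in SCNT and 145 and 73.7 in KDM4E-SCNT (-2.37 ± 0.38, adjusted p = 0.00135). POLR1C, a subunit of RNA polymerases I and III, was at 151, 78.8 and 129 FPKM in SCNT and 31.3 and 20.5 in KDM4E-SCNT (-2.14 ± 0.36, adjusted p = 0.00163). NMD3, the export adaptor of the large subunit, and DKC1, the pseudouridine synthase, were the rises, by 1.1 and 1.12. Translation factors had 26 falls and 7 rises among 65 members (40.0% and 10.8%). EIF5A was at 1302, 524 and 547 FPKM in SCNT and 179 and 97.1 in KDM4E-SCNT (-2.44 ± 0.59, adjusted p = 0.00933), and PABPC1, the main cytoplasmic poly(A)-binding protein, at 563, 357 and 362 FPKM in SCNT and 152 and 116 in KDM4E-SCNT (-1.65 ± 0.39, adjusted p = 0.00821). PAIP1, a partner of the poly(A)-binding protein, went the other way, at 642, 1065 and 872 FPKM in SCNT and 4192 and 6487 in KDM4E-SCNT (2.63 ± 0.30, adjusted p = 0.000482), as did EIF1B (1.32 ± 0.29, adjusted p = 0.00566). Aminoacyl-tRNA synthetases had 7 falls and 2 rises among 30 members (23.3% and 6.67%). SARS fell from 35.7, 39.3 and 24.9 to 12.2 and 8.19 FPKM (-1.61 ± 0.35, adjusted p = 0.00558). The mitochondrial ribosome list had 1 rise and 13 falls without KDM4E-SCNT replicate 2. The biogenesis list had 0 rises and 4 falls without KDM4E-SCNT replicate 2 and 1 and 14 without SCNT replicate 1. The translation factor list had 2 rises and 2 falls without KDM4E-SCNT replicate 2. The synthetase list had 0 rises and 1 fall without KDM4E-SCNT replicate 2, 4 and 4 without KDM4E-SCNT replicate 1, 1 and 3 without SCNT replicate 1, 1 and 4 without SCNT replicate 3, 1 and 10 with median-ratio scaling and 1 and 8 with quantile normalization. EIF5A, PABPC1, EIF1B, SARS, NMD3 and DKC1 did not pass the test without KDM4E-SCNT replicate 2 (adjusted p from 0.066 to 0.116). MRPS36 and DKC1 were not called with median-ratio scaling (adjusted p from 0.0535 to 0.113) and NMD3 without SCNT replicate 1 or 2 or with median-ratio scaling (adjusted p from 0.056 to 0.163).

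**Figure D3:**
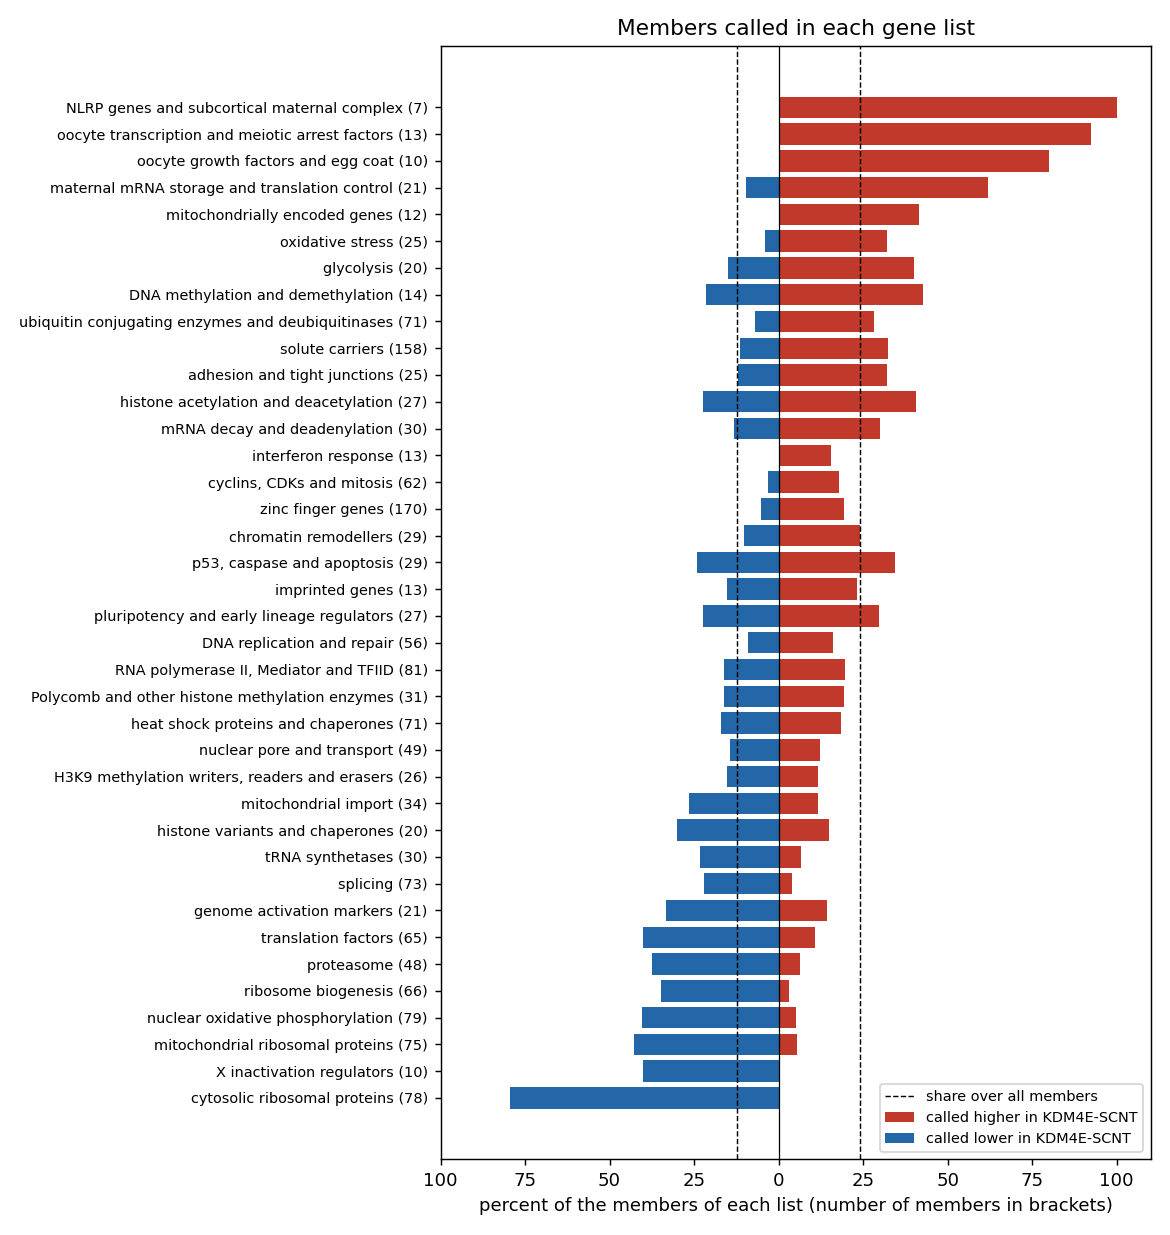
For each gene list the bars give the percentage of its members called higher (red, to the right) and called lower (blue, to the left) in KDM4E-SCNT, with the number of members in brackets. The dashed lines mark the shares over all members, 24.0% higher and 12.4% lower. The lists of oocyte genes stand at the top, with all 7 members of the subcortical maternal complex list higher, and the cytosolic ribosomal proteins at the bottom, with 62 of 78 lower.

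Most called genes of the respiratory chain fell when the nucleus encodes them and rose when the mitochondrion does, although with median-ratio scaling the mitochondrially encoded genes had 2 rises and 2 falls. The nuclear-encoded subunits had 32 falls and 4 rises among 79 members. Those are 40.5% and 5.06%, beside 12.4% lower and 24.0% higher among all members. NDUFA5, of complex I, was at 603, 478 and 461 FPKM in SCNT and 105 and 105 in KDM4E-SCNT (-2.27 ± 0.36, adjusted p = 0.00129). NDUFA12 and NDUFA13, of the same complex, fell by 1.97 and 1.92. ATP5J2, of ATP synthase, was at 391, 275 and 406 FPKM in SCNT and 117 and 96.1 in KDM4E-SCNT (-1.72 ± 0.30, adjusted p = 0.00182), and SDHD, of complex II, at 173, 71.9 and 149.7 FPKM in SCNT and 39.9 and 20.1 in KDM4E-SCNT (-2.08 ± 0.45, adjusted p = 0.00522). The summed share of the list was 2.51 to 2.92% in SCNT and 1.65 and 1.44% in KDM4E-SCNT. The rises were in NDUFB6, ATP5S, NDUFV2 and COX6B2, a form of the cytochrome oxidase subunit found in germ cells, which was at 18.4, 11.4 and 11.2 FPKM in SCNT and 46.1 and 41.9 in KDM4E-SCNT (1.65 ± 0.39, adjusted p = 0.00756). The mitochondrially encoded genes had 5 rises (41.7%) and no fall among 12 members. COX3 was at 6764, 4333 and 6115 FPKM in SCNT and 15320.0 and 16380.4 in KDM4E-SCNT (1.49 ± 0.24, adjusted p = 0.00147), and ND3 at 2109.5, 3147 and 2063 FPKM in SCNT and 5818 and 6468 in KDM4E-SCNT (1.36 ± 0.26, adjusted p = 0.00282). ND2 was at 2524, 2956 and 2580.3 FPKM in SCNT and 4675 and 4925 in KDM4E-SCNT (0.84 ± 0.24, adjusted p = 0.0173), with ND5 and ND1 higher by 0.89 and 0.67. CYTB was at 11376, 17036 and 14327 FPKM in SCNT and 11005 and 9540.5 in KDM4E-SCNT (adjusted p = 0.164) and ATP6 at 22924, 33536 and 24182 FPKM in SCNT and 22035 and 19651 in KDM4E-SCNT (adjusted p = 0.279), and neither was called. COX2 is listed at 0, 0 and 519 FPKM in SCNT and 1790.3 and 366 in KDM4E-SCNT, and no difference is given for it. Mitochondrial import genes had 9 falls and 4 rises among 34 members (26.5% and 11.8%). TIMM10B was at 512, 1038 and 651 FPKM in SCNT and 157 and 78.2 in KDM4E-SCNT (-2.65 ± 0.48, adjusted p = 0.00216), and TOMM70, an import receptor, at 21.4, 36.9 and 21.9 FPKM in SCNT and 97.4 and 158 in KDM4E-SCNT (2.22 ± 0.43, adjusted p = 0.0029). The nuclear respiratory list had 0 rises and 13 falls without KDM4E-SCNT replicate 2. The mitochondrially encoded list had 2 rises and 0 falls without KDM4E-SCNT replicate 2, 2 and 0 without SCNT replicate 1, 2 and 0 without SCNT replicate 3 and 2 and 2 with median-ratio scaling. The import list had 2 rises and 1 fall without KDM4E-SCNT replicate 2, 4 and 4 without SCNT replicate 1, 3 and 16 with median-ratio scaling and 5 and 6 with quantile normalization. SDHD, COX6B2, ND2, ND5 and ND1 were no longer called without KDM4E-SCNT replicate 2 (adjusted p from 0.0521 to 0.151). ND2 was not called without SCNT replicate 1 or 3 or with median-ratio scaling or with quantile normalization (adjusted p from 0.0542 to 0.27), ND5 without SCNT replicate 1 or 3 or with median-ratio scaling (adjusted p from 0.0711 to 0.258) and ND1 without KDM4E-SCNT replicate 1 or SCNT replicate 1 or 3 or with median-ratio scaling or with quantile normalization (adjusted p from 0.0715 to 0.574).

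Protein turnover and RNA processing followed the falls in part. Proteasome genes had 18 falls and 3 rises among 48 members, 37.5% and 6.25% beside 12.4% and 24.0% of all members. PSMA2, a subunit of the catalytic core, was at 360.3, 287 and 315 FPKM in SCNT and 90.7 and 64.1 in KDM4E-SCNT (-2.05 ± 0.30, adjusted p = 0.000999), and PSMB6, which carries an active site, at 382, 278 and 299 FPKM in SCNT and 88.8 and 57.8 in KDM4E-SCNT (-2.13 ± 0.37, adjusted p = 0.00186). PSMD5, an assembly chaperone, rose from 40.6, 33.5 and 19.4 to 67.7 and 108 FPKM (1.49 ± 0.36, adjusted p = 0.00859). Splicing genes had 16 falls and 3 rises among 73 members (21.9% and 4.11%). SRSF7 was at 769.7, 594 and 625 FPKM in SCNT and 187 and 159 in KDM4E-SCNT (-1.93 ± 0.28, adjusted p = 0.000904), and HNRNPA1 at 1741, 1469.6 and 1871 FPKM in SCNT and 735 and 404 in KDM4E-SCNT (-1.63 ± 0.31, adjusted p = 0.00282). U2AF2, which recognises the end of introns, rose from 18.9, 11.5 and 18.6 to 56.0 and 55.9 FPKM (1.75 ± 0.40, adjusted p = 0.00667). RNA polymerase II, Mediator and TFIID had 16 rises and 13 falls among 81 members (19.8% and 16.0%). Of the small polymerase subunits, POLR2I was at 451, 378 and 248 FPKM in SCNT and 71.7 and 42.6 in KDM4E-SCNT (-2.63 ± 0.55, adjusted p = 0.00429) and POLR2J at 1300.5, 1589 and 1155 FPKM in SCNT and 3125 and 3681 in KDM4E-SCNT (1.34 ± 0.24, adjusted p = 0.00207). MED28 was at 389, 284 and 313 FPKM in SCNT and 82.2 and 80.6 in KDM4E-SCNT (-1.99 ± 0.35, adjusted p = 0.00204). TAF9B was at 6.60, 1.88 and 3.75 FPKM in SCNT and 24.6 and 39.3 in KDM4E-SCNT (2.77 ± 0.44, adjusted p = 0.00127), while its paralogue TAF9 fell from 495, 343 and 472 to 194 and 103 FPKM (-1.60 ± 0.35, adjusted p = 0.00516). Chaperones had 13 rises and 12 falls among 71 members (18.3% and 16.9%). CCT6A, a subunit of the cytosolic chaperonin, was at 77.4, 44.3 and 57.3 FPKM in SCNT and 7.09 and 2.91 in KDM4E-SCNT (-3.40 ± 0.43, adjusted p = 0.000615), and CCT4 at 232, 197 and 224 FPKM in SCNT and 69.1 and 44.1 in KDM4E-SCNT (-1.96 ± 0.31, adjusted p = 0.00135). HSPB11, on this list by its symbol but described as an intraflagellar transport protein, rose from 7.44, 8.32 and 7.0 to 40.7 and 55.9 FPKM (2.51 ± 0.31, adjusted p = 0.000601). The proteasome list had 0 rises and 4 falls without KDM4E-SCNT replicate 2 and 1 and 27 with median-ratio scaling. The splicing list had 1 rise and 2 falls without KDM4E-SCNT replicate 2, 3 and 9 without SCNT replicate 1, 1 and 10 without SCNT replicate 3 and 1 and 36 with median-ratio scaling. The polymerase list had 3 rises and 4 falls without KDM4E-SCNT replicate 2, 12 and 16 without KDM4E-SCNT replicate 1, 10 and 10 without SCNT replicate 3, 7 and 25 with median-ratio scaling and 13 and 13 with quantile normalization. The chaperone list had 4 rises and 3 falls without KDM4E-SCNT replicate 2, 12 and 12 without KDM4E-SCNT replicate 1, 11 and 11 without SCNT replicate 2 and 7 and 19 with median-ratio scaling. The calls of PSMD5, U2AF2, POLR2I and TAF9 did not hold without KDM4E-SCNT replicate 2 (adjusted p from 0.0548 to 0.102).

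Genes of the cell cycle, DNA replication, apoptosis and nuclear transport were called in both directions. Cyclins, their kinases and mitotic genes had 11 rises and 2 falls among 62 members. Those are 17.7% and 3.23%, both below the 24.0% and 12.4% of all members. AURKA, a kinase of the spindle poles, was at 385, 613 and 435 FPKM in SCNT and 1188 and 1874 in KDM4E-SCNT (1.67 ± 0.31, adjusted p = 0.00235), and CDK17 at 17.8, 21.7 and 17.6 FPKM in SCNT and 98.7 and 126 in KDM4E-SCNT (2.49 ± 0.33, adjusted p = 0.000665). CCNE1, which drives entry into replication, was at 63.3, 46.7 and 37.5 FPKM in SCNT and 22.2 and 11.6 in KDM4E-SCNT (-1.52 ± 0.36, adjusted p = 0.00802). Replication and repair genes had 9 rises and 5 falls among 56 members (16.1% and 8.93%), also below those shares. ORC5, of the origin recognition complex, was at 41.1, 31.3 and 32.1 FPKM in SCNT and 172 and 219 in KDM4E-SCNT (2.45 ± 0.29, adjusted p = 0.000573), and LIG1, the replicative ligase, at 10.5, 12.4 and 11.6 FPKM in SCNT and 43.5 and 81.2 in KDM4E-SCNT (2.27 ± 0.35, adjusted p = 0.00123). MSH6, of mismatch repair, was at 79.5, 80.7 and 96.0 FPKM in SCNT and 30.7 and 11.4 in KDM4E-SCNT (-2.12 ± 0.44, adjusted p = 0.00436). Apoptosis genes had 10 rises and 7 falls among 29 members (34.5% and 24.1%). CASP6 was at 68.9, 58.6 and 70.6 FPKM in SCNT and 222 and 383 in KDM4E-SCNT (2.13 ± 0.30, adjusted p = 0.000882), XIAP, a caspase inhibitor, at 6.27, 4.22 and 6.24 FPKM in SCNT and 22.5 and 33.2 in KDM4E-SCNT (2.12 ± 0.44, adjusted p = 0.00408), and MCL1, which blocks apoptosis, at 90.1, 111 and 111 FPKM in SCNT and 62.8 and 20.9 in KDM4E-SCNT (-1.48 ± 0.41, adjusted p = 0.0156). Nuclear transport genes had 6 rises and 7 falls among 49 members (12.2% and 14.3%). The oocyte importin KPNA7 was at 99.4, 88.9 and 141 FPKM in SCNT and 509 and 729.6 in KDM4E-SCNT (2.49 ± 0.42, adjusted p = 0.00173), KPNA2 at 217, 154 and 189.8 FPKM in SCNT and 628 and 990.0 in KDM4E-SCNT (2.09 ± 0.29, adjusted p = 0.000779) and XPO1, the main exporter, at 284, 256 and 299 FPKM in SCNT and 86.7 and 23.1 in KDM4E-SCNT (-2.61 ± 0.43, adjusted p = 0.00157). The cyclin list had 4 rises and 0 falls without KDM4E-SCNT replicate 2, 7 and 1 without SCNT replicate 1, 6 and 1 without SCNT replicate 3, 5 and 8 with median-ratio scaling and 9 and 4 with quantile normalization. The replication list had 6 rises and 1 fall without KDM4E-SCNT replicate 2 and 7 and 10 with median-ratio scaling. The apoptosis list had 2 rises and 0 falls without KDM4E-SCNT replicate 2, 7 and 8 without KDM4E-SCNT replicate 1, 6 and 5 without SCNT replicate 1, 5 and 4 without SCNT replicate 3, 6 and 9 with median-ratio scaling and 5 and 6 with quantile normalization. The transport list had 3 rises and 1 fall without KDM4E-SCNT replicate 2, 5 and 5 without SCNT replicate 2, 5 and 3 without SCNT replicate 3, 3 and 14 with median-ratio scaling and 5 and 9 with quantile normalization. CCNE1, MSH6, XIAP and MCL1 missed the threshold without KDM4E-SCNT replicate 2 (adjusted p from 0.0571 to 0.217). MCL1 was not called without SCNT replicate 3 (adjusted p = 0.052).

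Antioxidant and glycolytic genes were called in both directions. Of 25 members of the oxidative stress list 8 rose and 1 fell, which is 32.0% and 4.0% beside 24.0% and 12.4% of all members. NQO1, a quinone reductase, was at 2.75, 1.67 and 1.91 FPKM in SCNT and 15 and 29.2 in KDM4E-SCNT (2.84 ± 0.37, adjusted p = 0.000666). PRDX1 was at 294, 316 and 250.4 FPKM in SCNT and 670.4 and 1189 in KDM4E-SCNT (1.64 ± 0.30, adjusted p = 0.00213), and PRDX2 at 161, 143 and 156 FPKM in SCNT and 314 and 862 in KDM4E-SCNT (1.76 ± 0.37, adjusted p = 0.00458). These peroxiredoxins remove peroxide, and replicate 2 was the higher KDM4E-SCNT library for both. Glycolysis had 8 rises and 3 falls among 20 members, or 40.0% and 15%. LDHA was at 27.1, 80.9 and 44.6 FPKM in SCNT and 313 and 466 in KDM4E-SCNT (3.02 ± 0.46, adjusted p = 0.00117), and LDHC, the germ cell form of lactate dehydrogenase, at 5.08, 5.73 and 4.51 FPKM in SCNT and 39.3 and 45.2 in KDM4E-SCNT (2.83 ± 0.31, adjusted p = 0.000453). LDHB fell from 235, 125 and 191 to 60.4 and 114 FPKM (-1.09 ± 0.36, adjusted p = 0.0353). PGK1 was at 152, 164 and 161 FPKM in SCNT and 49.5 and 32.7 in KDM4E-SCNT (-1.96 ± 0.35, adjusted p = 0.00213), and SLC2A3, a glucose transporter, at 225, 149 and 161 FPKM in SCNT and 67.8 and 38.9 in KDM4E-SCNT (-1.75 ± 0.41, adjusted p = 0.00701). The oxidative stress list had 4 rises and 1 fall without KDM4E-SCNT replicate 2 and 6 and 5 with median-ratio scaling. The glycolysis list had 3 rises and 2 falls without KDM4E-SCNT replicate 2, 6 and 6 with median-ratio scaling and 6 and 4 with quantile normalization. PRDX2 and SLC2A3 fell short of a call without KDM4E-SCNT replicate 2 (adjusted p from 0.0568 to 0.0926). LDHB was not called without KDM4E-SCNT replicate 1 or SCNT replicate 1 or 3 or with quantile normalization (adjusted p from 0.0697 to 0.243).

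Among genes of the cell surface, adhesion and tight junction genes had 8 rises and 3 falls among 25 members. CTNNA1, the catenin that ties cadherin to actin, was at 7.19, 13.0 and 8.47 FPKM in SCNT and 32.9 and 52.8 in KDM4E-SCNT (2.05 ± 0.36, adjusted p = 0.00186). OCLN, of tight junctions, was at 106, 271 and 195 FPKM in SCNT and 520.2 and 685 in KDM4E-SCNT (1.74 ± 0.36, adjusted p = 0.00387). CDH1, or E-cadherin, was at 42.5, 34.0 and 34.8 FPKM in SCNT and 17.9 and 14.4 in KDM4E-SCNT (-1.15 ± 0.41, adjusted p = 0.048), and F11R, a junctional adhesion molecule, at 87.4, 48.1 and 57.0 FPKM in SCNT and 14.7 and 8.85 in KDM4E-SCNT (-2.35 ± 0.56, adjusted p = 0.00784). Solute carriers had 51 rises and 18 falls among 158 members (32.3% and 11.4%), of 282 found, and 21 of the 158 reached 1 FPKM in 1 group only. The cationic amino acid transporter SLC7A3 was at 13.8, 8.12 and 18.7 FPKM in SCNT and 86.7 and 159.5 in KDM4E-SCNT (3.1 ± 0.39, adjusted p = 0.000601), the zinc carrier SLC30A9 at 8.56, 8.90 and 5.98 FPKM in SCNT and 58.6 and 67.5 in KDM4E-SCNT (2.87 ± 0.32, adjusted p = 0.000453) and the sulfate transporter SLC26A2 at 28.5, 32.6 and 33.2 FPKM in SCNT and 6.85 and 3.99 in KDM4E-SCNT (-2.37 ± 0.36, adjusted p = 0.00117). Zinc finger genes had 33 rises and 9 falls among 170 members, of 241 found. Those are 19.4% and 5.29%, both below the shares of all members, and 10 of the 170 reached 1 FPKM in 1 group only. ZNF2 was at 2.04, 4.99 and 1.61 FPKM in SCNT and 35.0 and 36.4 in KDM4E-SCNT (3.34 ± 0.39, adjusted p = 0.000553), and ZNF385B at 1.08, 2.36 and 0.92 FPKM in SCNT and 14.6 and 20.6 in KDM4E-SCNT (2.95 ± 0.38, adjusted p = 0.00064). Ubiquitin conjugating enzymes and deubiquitinases had 20 rises and 5 falls among 71 members (28.2% and 7.04%), with USP13 at 5.75, 4.64 and 8.80 FPKM in SCNT and 41.8 and 43.4 in KDM4E-SCNT (2.60 ± 0.36, adjusted p = 0.000779). Interferon response genes had 2 rises and no fall among 13 members of 24 found, DDX58 and IFIT3, or 15.4% higher. IFIT3 reached 1 FPKM in KDM4E-SCNT only, so a difference between the groups is built into its choice. The adhesion list had 2 rises and 0 falls without KDM4E-SCNT replicate 2. The solute carrier list had 12 rises and 5 falls without KDM4E-SCNT replicate 2, 31 and 29 with median-ratio scaling and 25 and 24 with quantile normalization. The zinc finger list had 15 rises and 2 falls without KDM4E-SCNT replicate 2, 28 and 24 with median-ratio scaling and 28 and 18 with quantile normalization. The ubiquitin list had 7 rises and 1 fall without KDM4E-SCNT replicate 2 and 12 and 9 with median-ratio scaling. The interferon list had 1 rise and 0 falls without KDM4E-SCNT replicate 2, 2 and 2 with median-ratio scaling and 1 and 1 with quantile normalization. CDH1 and F11R did not pass the test without KDM4E-SCNT replicate 2 (adjusted p from 0.092 to 0.227). CDH1 was not called without KDM4E-SCNT replicate 1 or SCNT replicate 1, 2 or 3 (adjusted p from 0.0736 to 0.125).

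The 15 largest rises among members with a symbol and a mean log2(FPKM + 1) of at least 3 include GDF9 and SLBP2 of the oocyte lists. TCL1B, a coactivator of the AKT kinase, was at 4.46, 1.98 and 4.35 FPKM in SCNT and 54.4 and 97.3 in KDM4E-SCNT (4.06 ± 0.42, adjusted p = 0.000422). MDGA1, a surface glycoprotein, was at 5.64, 2.30 and 4.65 FPKM in SCNT and 70.6 and 76.4 in KDM4E-SCNT (3.90 ± 0.39, adjusted p = 0.000422), and ALDH1A1, which makes retinoic acid, at 2.92, 4.10 and 1.78 FPKM in SCNT and 44.6 and 61.8 in KDM4E-SCNT (3.81 ± 0.39, adjusted p = 0.000422). INPP1, an inositol phosphatase, was at 6.65, 8.73 and 4.34 FPKM in SCNT and 43.5 and 125 in KDM4E-SCNT (3.35 ± 0.43, adjusted p = 0.00064). DYNC1I1, an intermediate chain of dynein, was at 2.37, 9.32 and 2.15 FPKM in SCNT and 34.2 and 65.2 in KDM4E-SCNT (3.33 ± 0.49, adjusted p = 0.000975). LOC530773, described as a histone H4, was at 4.56, 41.0 and 32.4 FPKM in SCNT and 169 and 394 in KDM4E-SCNT (3.71 ± 0.70, adjusted p = 0.00297), and its reads may be shared with other histone genes. TSPAN19, MORN2, CCDC181 and LOC100848540, described as a ferritin, rose by 3.28, 3.17, 3.1 and 3.25. GDF9, GDF3, SLBP2, ZNF2 and SLC7A3, given above, complete the 15.

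The largest falls came from genes of mixed roles. SPINK7, a serine protease inhibitor, was at 165, 35.9 and 398 FPKM in SCNT and 4.15 and 3.81 in KDM4E-SCNT (-4.76 ± 0.80, adjusted p = 0.00186), a 27-fold fall. GRP, the gastrin-releasing peptide, was at 116, 75.9 and 82.2 FPKM in SCNT and 9.07 and 4.21 in KDM4E-SCNT (-3.65 ± 0.39, adjusted p = 0.000422). C23H6orf62 was at 422, 373 and 511 FPKM in SCNT and 54.2 and 24.9 in KDM4E-SCNT (-3.52 ± 0.37, adjusted p = 0.000422). TPH1, which starts serotonin synthesis, was at 28.4, 37.8 and 38.3 FPKM in SCNT and 4.71 and 1.09 in KDM4E-SCNT (-3.36 ± 0.60, adjusted p = 0.00199). HBG, described as a fetal globin, was at 179, 60.6 and 90.5 FPKM in SCNT and 10.7 and 8.16 in KDM4E-SCNT (-3.28 ± 0.55, adjusted p = 0.00157), although HBB reached at most 0.72 FPKM in the 5 libraries. MGST1, a glutathione transferase, was at 51.1, 32.1 and 49.7 FPKM in SCNT and 2.77 and 4.92 in KDM4E-SCNT (-3.23 ± 0.41, adjusted p = 0.00064). KRT17 was at 57.2, 16.0 and 7.36 FPKM in SCNT and 2.30 and 0.44 in KDM4E-SCNT (-3.21 ± 0.67, adjusted p = 0.00435), and ACSL1, which activates fatty acids, at 66.6, 47.4 and 60.4 FPKM in SCNT and 7.31 and 5.27 in KDM4E-SCNT (-3.02 ± 0.37, adjusted p = 0.000601). GCSH, CMSS1, FKBP11 and LOC521656, described as a cytochrome P450, fell by 3.28, 3.03, 2.99 and 3.00, and H1F0 and CCT6A are given above. KRT17 was no longer called without KDM4E-SCNT replicate 2 (adjusted p = 0.0689).

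Few members went from near silence to a high level. Among members with a symbol, 19 were under 0.1 FPKM in all 3 SCNT libraries and 24 under 0.1 in both KDM4E-SCNT libraries. Such features became members through 1 group only, so a difference between the groups is built into their choice. The cysteine dioxygenase gene CDO1 had 0, 0 and 0.01 FPKM in SCNT and 59.0 and 149.8 in KDM4E-SCNT (6.57 ± 0.40, adjusted p = 7.14e-06), the largest called difference of all members. In IVF embryos CDO1 was at 247 ± 55.4 FPKM (SD, n = 3). LOC101902937, described as a cytochrome oxidase subunit, was at 0, 0 and 0 and 1.43 and 8.95, and the interleukin IL21 at 0, 0 and 0 and 4.43 and 3.34. FAM89B was at 0, 0 and 0 and 1.61 and 5.41, and the growth factor FGF7 at 0, 0 and 0 and 1.29 and 5.0. In the other direction MPZL2, an adhesion protein, was at 8.08, 3.70 and 5.82 FPKM in SCNT and 0 and 0 in KDM4E-SCNT, and SH2D4B at 5.29, 8.00 and 3.00 and 0 and 0. LOC785540, described as a cytochrome P450, was at 7.49, 1.36 and 5.81 and 0 and 0, ATP6V0D2, a subunit of the proton pump of lysosomes, at 10.8, 1.89 and 1.94 and 0 and 0, and CMTM5 at 7.43, 2.82 and 2.35 and 0 and 0.

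More widely, 848 members reached 1 FPKM in KDM4E-SCNT libraries only, of which 527 were called higher, and 544 in SCNT libraries only, of which 179 were called lower. These members too had to differ, given how they were chosen. The 8722 members at 1 FPKM or more in all 5 libraries did not depend on 1 group, and of these 1982 were higher and 1342 lower. Over all 13219 members the counts were 3175 and 1636, so rises outnumbered falls by less among the 8722. Of the 5 highest members by mean FPKM 1 was called. ENSBTAG00000038488.2, described as a thymosin, was at 27076, 39760.1 and 27449 FPKM in SCNT and 68728 and 48551 in KDM4E-SCNT (0.90 ± 0.25, adjusted p = 0.0159). ATP6 and CYTB are given above. MGC148328 was at 5577, 16579 and 9235 FPKM in SCNT and 14358 and 16729 in KDM4E-SCNT (0.71 ± 0.46, adjusted p = 0.248), and LOC781841, described as a spermatid transition protein, at 5446, 11552 and 8845 FPKM in SCNT and 12985 and 15514 in KDM4E-SCNT (0.79 ± 0.39, adjusted p = 0.134). ENSBTAG00000038488.2 was not called without KDM4E-SCNT replicate 1 or SCNT replicate 1 or 3 or with median-ratio scaling or with quantile normalization (adjusted p from 0.0548 to 1).

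The KDM4E-SCNT libraries differed from each other in how far they stood from SCNT. Replicate 2 was further from the SCNT mean than replicate 1 in 2463 of the members called higher (77.6%) and in 1191 of those called lower (72.8%). The median distance was 1.47 for replicate 1 and 1.88 for replicate 2 among rises, and -1.31 and -1.75 among falls. The libraries differed by at least 2-fold in 2656 members (20.1%). The widest gaps upwards in replicate 2 among called members were in S100A11, a calcium-binding protein, at 3.17, 13.3 and 2.13 FPKM in SCNT and 10.3 and 180.3 in KDM4E-SCNT, and LOC100847724, described as a WAP domain protein, at 72.2, 60.8 and 68.7 FPKM in SCNT and 2.2 and 48.4 in KDM4E-SCNT. AAMDC, EXOC4 and B3GALNT2 followed, with KDM4E-SCNT values of 0.83 and 11.9, 12.4 and 54.7 and 8.15 and 36.5 FPKM. The widest gaps downwards were in TOMM20, the receptor of mitochondrial import, at 216, 159 and 219 FPKM in SCNT and 94.2 and 14.4 in KDM4E-SCNT, and TOMM5 at 1463, 1755 and 1104 FPKM in SCNT and 943 and 163 in KDM4E-SCNT. TMX1, NIPSNAP3A and GCSH had KDM4E-SCNT values of 63.4 and 12.2, 23.2 and 4.24 and 54.4 and 11.3 FPKM. No value can say which of the 2 libraries is closer to the group, since no other library of that group was measured.

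**Figure D4:**
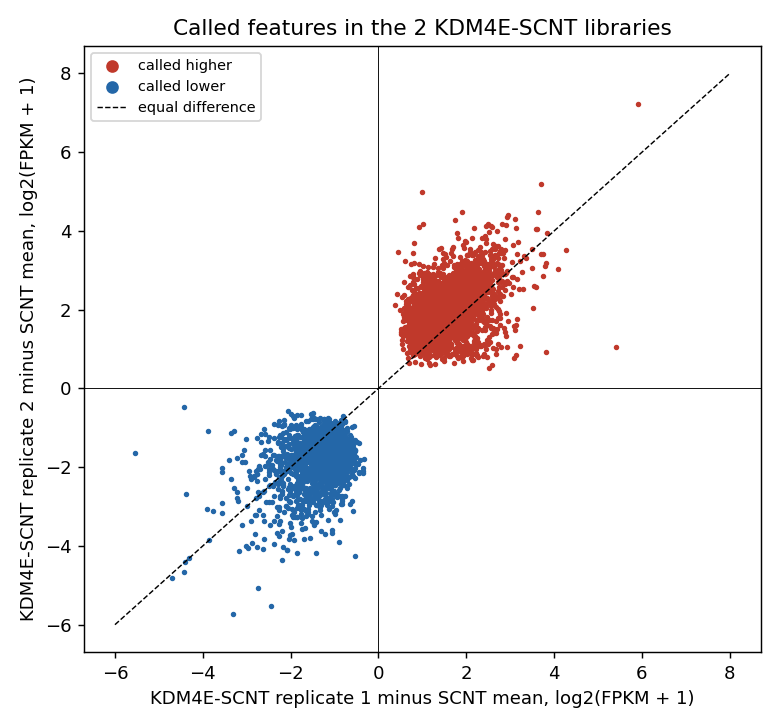
Each point is a member called higher (red) or lower (blue), with its distance from the mean of the SCNT libraries in KDM4E-SCNT replicate 1 on the horizontal axis and in replicate 2 on the vertical axis, both as log2(FPKM + 1). The dashed line marks equal distances. Of the rises 77.6% were further from SCNT in replicate 2, as were 72.8% of the falls.

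Markers of cell types other than blastomeres were examined, since a pool of embryos could carry RNA of other cells. Of 25 fibroblast markers found 17 were members, and the summed level of the 25 was 151, 211 and 123 FPKM in SCNT, 129 in KDM4E-SCNT replicate 1 and 560 in replicate 2, or 0.0151 to 0.025%, 0.016% and 0.0743% of FPKM. Replicate 2 was the highest of the 5 libraries for 14 of the 25. That was not particular to fibroblast markers. The same library was highest for 9 of 15 cumulus, 6 of 12 sperm, 5 of 7 trophectoderm and 2 of 11 blood markers found. It also listed the most features at 1 FPKM or more of the 5 libraries (13050). How often it was highest over all members was not counted, so these counts have no background beside them. TIMP1, an inhibitor of matrix proteases, was at 14.2, 7.08 and 4.71 FPKM in SCNT and 5.02 and 135 in KDM4E-SCNT. LGALS1, a galectin, was at 43.0, 69.0 and 52.5 FPKM in SCNT and 10.9 and 127 in KDM4E-SCNT, and SPARC, a matrix protein, at 50.6, 29.5 and 23.6 FPKM in SCNT and 10.4 and 53.3 in KDM4E-SCNT. For TIMP1 and LGALS1 replicate 2 was above the other 4 libraries, while for SPARC it was close to SCNT replicate 1, and none of the 3 was called (adjusted p = 0.216, 0.649 and 0.563). POSTN was at 0, 2.14 and 0.35 FPKM in SCNT and 0.65 and 28.6 in KDM4E-SCNT, and LUM at 2.82, 29.2 and 5.0 FPKM in SCNT and 13.4 and 84.6 in KDM4E-SCNT. The defining collagens did not follow, since COL1A1 was at 0.93, 4.58 and 0.86 FPKM in SCNT and 2.36 and 2.35 in KDM4E-SCNT, COL1A2 at 0.11, 2.66 and 0.19 and 0 and 1.35, and COL3A1 at 0, 2.71 and 0.02 and 0.33 and 0.65. S100A4, VIM, FBN1 and CAV1 were called higher and were raised in both KDM4E-SCNT libraries, S100A4 at 2.83, 4.88 and 5.37 FPKM in SCNT and 25.1 and 35.1 in KDM4E-SCNT (2.55 ± 0.51, adjusted p = 0.00364) and VIM at 0.65, 4.91 and 2.19 FPKM in SCNT and 11.3 and 18.7 in KDM4E-SCNT (2.31 ± 0.64, adjusted p = 0.0163). Of the 25 markers 8, 2 and 9 were listed at 0 in the SCNT libraries, 3 in KDM4E-SCNT replicate 1 and none in replicate 2. CAV1 reached 1 FPKM in KDM4E-SCNT only, so a difference between the groups is built into its choice. The part of fibroblast RNA in the differences of replicate 2 was not tested. The fibroblast list had 0 rises and 1 fall without KDM4E-SCNT replicate 2, 7 and 0 without KDM4E-SCNT replicate 1, 2 and 0 without SCNT replicate 1 and 7 and 0 without SCNT replicate 2. S100A4 and VIM missed the threshold without KDM4E-SCNT replicate 2 (adjusted p from 0.0501 to 0.143). VIM was not called without SCNT replicate 1 (adjusted p = 0.0642).

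**Figure D5:**
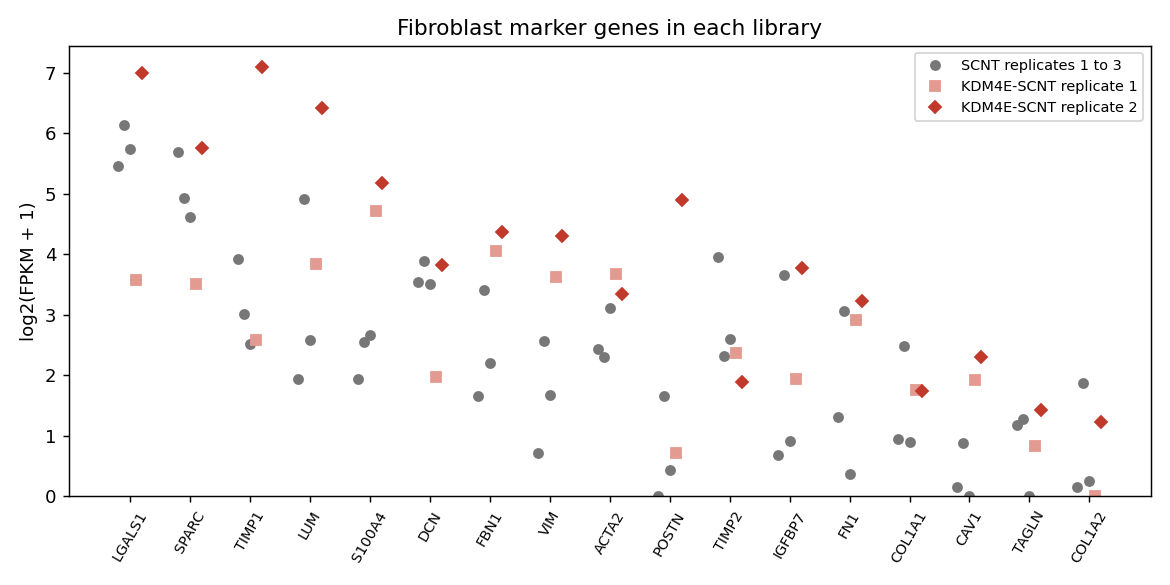
log2(FPKM + 1) of the 17 fibroblast markers that were members, ordered by mean level. Grey circles are the SCNT libraries, the pale square is KDM4E-SCNT replicate 1 and the dark diamond is replicate 2. Replicate 2 stands apart for TIMP1, LUM and POSTN, while COL1A1 and COL1A2 lie within the range of the SCNT libraries.

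Markers of 4 other cell types were examined in the same way. Of 15 cumulus and granulosa markers found 5 were members, and the summed level was 33.3 to 41.4 FPKM in SCNT, 74.4 and 135 in KDM4E-SCNT and 126 to 217 in IVF embryos. HAS2, which makes hyaluronan, was at 4.87, 9.56 and 6.01 FPKM in SCNT and 27.5 and 47.4 in KDM4E-SCNT (2.29 ± 0.39, adjusted p = 0.00163), and STAR, which carries cholesterol into mitochondria, at 5.08, 11.1 and 6.15 FPKM in SCNT and 15.6 and 41.5 in KDM4E-SCNT (1.72 ± 0.47, adjusted p = 0.0156). Other markers of the list were mixed. SERPINE2 was at 14.1, 15.05 and 14.7 FPKM in SCNT and 28.2 and 31.0 in KDM4E-SCNT (adjusted p = 0.0704). TNFAIP6 went the other way, at 8.19, 3.70 and 3.83 FPKM in SCNT and 1.30 and 3.61 in KDM4E-SCNT (adjusted p = 0.181), and neither was called. PTGS2, no member, was at 0.34, 0.56 and 0.51 FPKM in SCNT and 0.63 and 6.04 in KDM4E-SCNT. The granulosa genes FSHR, CYP19A1 and AMH were at or under 0.16 FPKM in all 5 libraries. Of 12 sperm markers found 7 were members, and 3 rose and 1 fell. Those are 42.9% and 14.3%, beside 24.0% and 12.4% of all members. TEKT1, among the rises, reached 1 FPKM in KDM4E-SCNT only, so a difference between the groups is built into its choice. LDHC, given above, made up 45.2 of the 65.5 FPKM of sperm markers in KDM4E-SCNT replicate 2. CRISP2 fell from 20.2, 17.5 and 34.3 to 3.65 and 2.64 FPKM (-2.55 ± 0.41, adjusted p = 0.00135). The 11 blood markers summed to 328, 172 and 167 FPKM in SCNT and 66.9 and 97.0 in KDM4E-SCNT, so that both KDM4E-SCNT libraries were lower. Of these markers 7 were members and HBG alone was called, and PTPRC, which marks white blood cells, reached at most 0.81 FPKM. HBA and HBA1, near-identical genes that can share reads, had nearly the same values in every library. Trophectoderm markers had 3 members of 7 found, none called. The part of these cells in the results was not tested. The cumulus list had 1 rise and 0 falls without KDM4E-SCNT replicate 2, 1 and 0 without SCNT replicate 1 and 1 and 0 without SCNT replicate 3. STAR fell short of a call without KDM4E-SCNT replicate 2 (adjusted p = 0.21). STAR was not called without SCNT replicate 1 or 3 (adjusted p from 0.052 to 0.0561).

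Falls and rises differed in their level in SCNT and in their spread over the range of abundance. The members called lower had a median SCNT level of 37.2 FPKM, those called higher 3.0 FPKM and those not called 4.39 FPKM. Part of that gap is built in, since a fall starts higher and a rise lower than it ends. In KDM4E-SCNT the medians were 11.4 FPKM for members called lower and 13.4 FPKM for those called higher. In 5 equal groups by the mean over the 5 libraries, the share called lower was 3.06, 4.8, 10.3, 15 and 28.7% from the lowest to the highest, and the share called higher was 15.9, 25.2, 29.4, 28.7 and 21.0%. Low features can hardly fall on this scale, which limits the first of these series. Genomic span differed as well. The median span was 28966 bp for members called higher, 10470 bp for those called lower and 14614 bp for those not called. In 5 equal groups by span, from the shortest to the longest, 16.3, 18.3, 21.3, 26.9 and 37.3% were called higher and 13.1, 17.9, 13.7, 10.7 and 6.51% lower. These shares describe the members and carry no test.

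Calls were spread over all chromosomes. Over the 29 autosomes the share called higher ran from 17.4% on chromosome 18 to 31.1% on chromosome 27, and the share called lower from 9.57% on chromosome 2 to 15.7% on chromosome 21. Annotated genes with Ensembl identifiers were called higher in 26.0% and lower in 12.9% of 10406 members. Assembled loci were called higher in 16.7% and lower in 10.3% of 2812. Of the assembled loci, 411 have descriptions that name a retrotransposon protein, of which 30 (7.3%) were called higher and 45 (10.9%) lower, with a median difference of -0.08. The other 2401 assembled loci had 18.4% and 10.2%, with a median of 0.25. Reads from repeated elements can be placed at more than 1 locus, and these shares carry no test.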

How the data were processed

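RNA was measured in 8 libraries, 3 SCNT, 2 KDM4E-SCNT and 3 IVF, each from a pool of 8 embryos. The cDNA was poly(A) tailed after reverse transcription, amplified by PCR and then sheared, per the labels' protocols. Per the file headers the deposited values are FPKM, 1 value per feature and library, written to 2 decimals. Build UMD3.1, RSEM 1.2.12, Bowtie2 2.2.5, StringTie 1.0.4, HISAT 0.1.6 and bcl2fastq 2.16 are listed in the submitters' processing notes, and the role of each tool is not given in the sources used here. Amplification can make low levels less precise, and the depth is unknown because FPKM carries no counts.

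From these values log2(FPKM + 1) was fitted in limma 3.58.1 (R 4.3.3) with 3 group means over all 8 libraries, robust moderation and a trend, on the 14839 features with at least 1 FPKM in at least 2 of the 8. The contrast KDM4E-SCNT minus SCNT was two-sided, adjusted by Benjamini and Hochberg over all features tested, and called at an adjusted p under 0.05. A difference on this scale understates changes of low genes. The model was run on simulated data in which 200 of 14839 genes were changed, far fewer than were called here. It called 16% of the 2-fold and 93% of the 4-fold changes, and 9.17% of its calls were false. Fits with other pseudocounts, filters, scalings, moderation, a replicate block and each library left out were compared, and their effect is given at the end.

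Gene symbols came from the files for 14158 features, from RefSeq accessions for 283 and from descriptions for 13 mitochondrial genes. Named genes are the KDM4 family, the 15 largest called rises and the 15 largest falls with a mean log2 of at least 3 and no overlap, up to 4 members of smallest p per list, the 3 highest markers per other cell type, the 5 highest members near silence in either group, the 5 with the widest gap between KDM4E-SCNT libraries in each direction and the 5 highest members. Other list members are named to complete families and were picked with their values in view. A few genes that these rules pick are not reported here. The members and the 43 gene lists, 5 of them markers of other cell types, were chosen with earlier results of these data known. Summaries and figures used Python 3.11.15, pandas 2.3.3, numpy 2.4.6 and matplotlib 3.10.9.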

Additional observations from a re-analysis of the deposited data

How the results depend on the processing

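Of the 4844 features called in either direction, 1553 to 4499 were called when 1 of the 5 libraries was left out, the lowest without KDM4E-SCNT replicate 2 and 3227 without SCNT replicate 1. Members called higher numbered 3175, with 1060 to 2824 across left-out libraries, 2096 with median-ratio scaling and 2090 with quantile normalization. Members called lower numbered 1636, with 459 to 1516 across left-out libraries, 997 without SCNT replicate 1, 1043 without SCNT replicate 3 and 2757 with median-ratio scaling. Where a library is left out of KDM4E-SCNT, the remaining one is assumed to vary like the other groups. All other planned settings kept these 3 counts within 1.5 times. With the replicate number as a block, 4252 features were called, and 2837 members were higher and 1402 lower. The numbers do not show pairing, since deviations from the group means correlated at 0.0065 for the libraries numbered 1 and 0.123 for those numbered 2, and 0.134 for the unpaired SCNT replicate 3 and KDM4E-SCNT replicate 1. With 2 libraries in a group these correlations mirror each other.

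Of 219 named genes 199 were called, and 132 of these kept the call in every alternative. The calls lost were 63 without KDM4E-SCNT replicate 2, 16 without SCNT replicate 1 and 15 without SCNT replicate 3, and at most 9 in any other setting, the block losing 3. The named genes that turned direction were not called, except ENSBTAG00000038488.2. KDM4A was at -0.11 with median-ratio scaling and -0.01 with quantile normalization. KRT19, a trophectoderm marker, was at -0.00 with quantile normalization, as was ENSBTAG00000038488.2. LGALS1 ranged from -2.2 to 1.23 and SPARC from -1.57 to 0.68 over left-out libraries, TIMP1 from -0.56 to 3.94 and KRT19 from -0.63 to 1.41. The cause of these shifts was not tested. With 2 libraries in a group and unknown depth, small changes of low genes cannot be judged.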
